A study of Homo sapiens with 12 samples.

Results

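A375-BIR, a form of the human melanoma line A375 that resists BRAF inhibitors, was compared with A375 while both were exposed to dabrafenib, a kinase inhibitor of mutant BRAF. The sample titles define the comparison: 3 libraries of A375-BIR and 3 libraries of A375, all from cultures given dabrafenib at 200 nM for 48 h, which make up 6 of the 12 samples of the series. The other samples are the same lines given the solvent DMSO at 0.1%. Their values are given only where the line difference under drug is set beside the line difference without it. Those with human gene identifiers also enter the shared fit, and so its count filter, scaling and estimate of the spread. Both lines were grown in RPMI medium with 10% serum. RNA was read as 3′ tags, in which each read marks the 3′ end of a polyadenylated transcript, so levels are given as counts per 1000000 of the library's scaled gene counts (CPM; scaled by TMM factors) and are not divided by gene length. The labels call the samples of a group biological replicates. They do not say how A375-BIR was selected, whether it is a single clone, or whether it was kept in a BRAF inhibitor before the experiment.

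A375 carries an activating BRAF mutation, and its growth depends on the signal that runs from BRAF through MEK to ERK. Inhibitors such as dabrafenib shut that signal down in sensitive cells, and resistant lines are known to regain it or to lean on receptor tyrosine kinases and other growth signals. Melanoma cells can also move between a pigmented state governed by MITF and SOX10, a neural crest-like state marked by NGFR, and an undifferentiated state marked by the receptors AXL and EGFR.

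The 3 A375-BIR libraries held 391210 to 971347 gene counts and the 3 A375 libraries 198690 to 493398, and all 6 share 1 run mark in the deposited names. A375 libraries 1 and 2 differed from each other by little more than the sampling noise of their counts (chi-square per degree of freedom 1.09 over 7128 genes, p = 2.74e-07), against 1.99 to 2.45 for the other A375 pairs and 4.26 to 4.89 for the A375-BIR pairs. With those A375 libraries summed into 1, 4149 genes passed the test, 2189 higher and 1960 lower in A375-BIR. Counts from the mitochondrial genome made up 5.17%, 4.88% and 7.21% of gene counts in A375-BIR and 10.7%, 11.01% and 15.1% in A375, and the third library was the highest of each group (two-sided exact permutation p = 0.1, the smallest that 3 against 3 libraries can give). With the mitochondrially encoded genes left out, 4388 genes passed the test, 2345 higher and 2043 lower, and 99.1% of the genes called with them were called again. Without the third library of both groups 4162 genes passed the test, 2202 higher and 1960 lower. Several defining markers of other cell types were not found: EPCAM, CLDN3, CLDN7, KRT5 and KRT6A of epithelia, PECAM1, VWF, CDH5, CLDN5 and EMCN of endothelium, and CD3E, CD14 and TYROBP of leukocytes had no count in any of the 6 libraries. Not all listed markers were low, since DSP, desmoplakin of epithelial junctions, stood at 115, 83.97 and 116 CPM in A375-BIR and at 61.9, 82.6 and 78.98 in A375, ESRP1 at 6.19 to 16.9 CPM in A375 with no count in A375-BIR, and CD68 at 26.7 to 46.6 against 13.4 to 22.7 CPM. The lists summed to 87.5 to 122 against 70.1 to 107 CPM for 12 epithelial markers, to 28.6 to 46.6 against 13.4 to 24.8 CPM for 10 leukocyte and erythroid markers, and to at most 3.81 and 5.64 CPM for 8 endothelial markers. The summed level of the 8 fibroblast markers spanned 20.9 to 28.0 CPM in A375-BIR, against 16.9 to 20.6 CPM in A375. That sum joins members that differed in opposite directions. PDGFRB had 18 counts in A375-BIR and 1 in A375, and FAP had 2 and 12. Both were too low to enter the test. Markers of the labelled cell type were unevenly present. PMEL had 12 counts in A375 and none in A375-BIR, MLANA 1 count and none, and TYRP1 2 counts in each group, so these pigment genes were near 0 in both lines. In bulk RNA, fewer cells that express a gene and less of its RNA in each cell cannot be told apart.

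Under dabrafenib the lines differed across much of the transcriptome. Of 10236 genes tested, 4374 differed at an adjusted p under 0.05 (42.7%), 2309 of them higher in A375-BIR (22.6%) and 2065 lower (20.2%). These shares are the background for every count of list members below. The fit also holds the usable DMSO libraries. With only the 6 dabrafenib libraries in the fit, 3123 of 7550 tested genes passed, 1614 higher and 1509 lower. All log2 differences below are A375-BIR minus A375 with their standard error, n = 3 libraries per line. Every adjusted p comes from edgeR's quasi-likelihood test in the shared fit, with Benjamini-Hochberg adjustment over the 10236 genes. The median log2 difference of all genes was 0.04 and the middle 50% lay between -0.62 and 0.70, while the called genes had a median size of 1.32. By fitted values, at least 2-fold differences were seen for 1627 higher and 1394 lower called genes, and at least 16-fold differences for 297 and 141. They include genes with no count in a line, whose fitted fold is no bound. In a test against a 2-fold change 795 higher and 607 lower genes passed. The libraries of the lines did not overlap for 4934 genes (48.2%), called or not. Most genes named below were chosen by a rule that requires this, so their lack of overlap is no further support. The share called was 46.4% of genes under 10 CPM and 33.1% of those at 10 to 30 CPM, and 64.5% of those over 300 CPM. The count filter admits a gene with a low mean only where some library is high. The share under 10 CPM can therefore be partly set by the filter. To turn the profile of one line into that of the other, 27.3% of its counts would have to lie in other genes, and 10 genes carried 19.8% of the summed size of all differences. Scaling by library totals alone moved the median of all genes by 0.12 and turned the split to 2655 higher and 1732 lower (60.5% higher, against 52.8%).

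**Figure D1:**
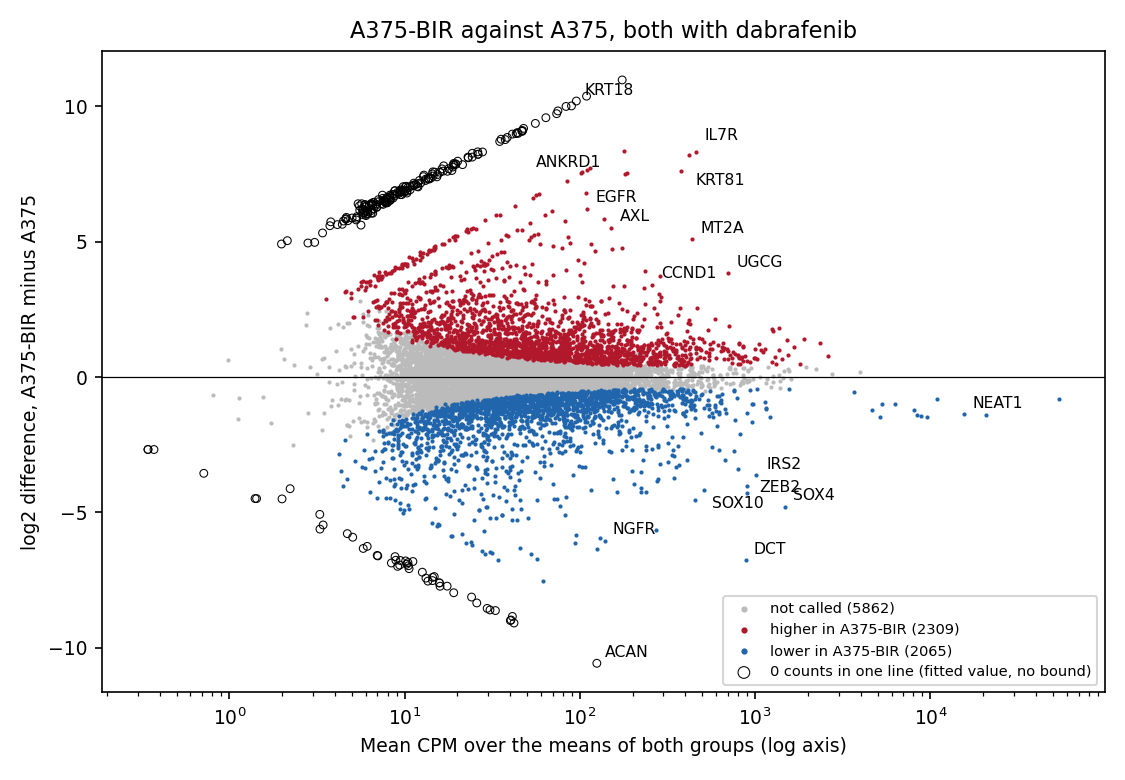
Each point is 1 of the 10236 tested genes, with mean CPM on a logarithmic horizontal axis and the log2 difference A375-BIR minus A375 under dabrafenib on the vertical axis; the 2309 higher and 2065 lower genes at an adjusted p under 0.05 are coloured. Open circles are genes with 0 counts in one line, whose fitted value is no bound. Beyond them, called genes are found across the range of levels, with IL7R and AXL far above 0 and SOX4 and DCT far below.

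The gene that gained the most CPM among those close to silent in A375 was IL7R (ENSG00000168685; chromosome 5, 35852695 to 35879603, GRCh38), the interleukin-7 receptor chain best known from lymphocytes. IL7R was read at 924, 924 and 895 CPM in A375-BIR, with 0, 4.46 and 5.64 in A375, a ratio of 340 (95% counting interval 116 to 1650) on 1845 against 3 counts. The A375-BIR libraries were close together and far above all A375 libraries. UGCG, which makes glucosylceramide, the first step towards most glycosphingolipids, stood at 982, 1895 and 1071 CPM in A375-BIR, with 98.99, 104.9 and 56.4 in A375 (log2 difference 3.83 ± 0.25, adjusted p = 9.74e-15). All A375-BIR values lay above all A375 values, with A375-BIR library 2 the highest. Among called genes with a mean of at least 10 CPM in the higher line, a group of 158 had no count at all in A375 under drug, and 38 had none in A375-BIR. A fold against such a group is a lower bound, set here against 3 counts over the group, which correspond to 2.70 CPM in A375 and 1.49 CPM in A375-BIR.

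The genes named here from the first group differ in what they do. IGFN1, an immunoglobulin-like and fibronectin-like domain protein, was read at 214, 304 and 528 CPM in A375-BIR and at 0 in all A375 libraries (at least 111-fold higher). AMIGO2, an adhesion molecule first described in neurons, stood at 273.2, 180.2 and 202 CPM (at least 86.2-fold higher). KISS1, the precursor of the kisspeptins and named as a suppressor of melanoma metastasis, reached 148, 142 and 248 CPM (at least 61.2-fold higher). For these 3 genes the A375 libraries held no count, so no overlap was possible. HBE1, the embryonic epsilon globin chain, was also on this list at 163, 168 and 119 CPM (at least 57.7-fold higher), as were RGS4 (at least 49.8-fold higher), which shortens G-protein signals, and ANPEP (at least 33.5-fold higher), the aminopeptidase CD13. HBE1 overlaps the fetal globin gene HBG2 on the same strand by annotated gene span. How the counting treated reads in such shared stretches is not given in the sources used here, so some reads may belong to the other gene. PXDN, a peroxidase that crosslinks collagen IV, stood at 119, 66.5 and 101 CPM (at least 37.2-fold higher).

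At the other end were genes with no count in A375-BIR. ACAN (ENSG00000157766; chromosome 15, 88803442 to 88875354), the cartilage proteoglycan aggrecan, was read at 301, 223 and 226 CPM in A375 and at 0 in all 3 A375-BIR libraries (at least 172-fold lower). NDN, which encodes necdin, an imprinted gene linked to growth arrest in neurons, stood at 96.9, 104.9 and 50.8 CPM in A375 (at least 62.1-fold lower). TRPM8, the cold- and menthol-sensitive ion channel, stood at 90.7, 93.7 and 56.4 CPM (at least 57.9-fold lower). In each of them every A375 library held counts and no A375-BIR library did. The same held for PCSK6, a proprotein convertase, at 74.2, 60.3 and 113 CPM (at least 50.05-fold lower), for the muscle ubiquitin ligase TRIM63 (at least 44.02-fold lower), for PPP1R3C, a glycogen-targeting subunit of protein phosphatase 1 (at least 30.8-fold lower), and for PMP2, a myelin protein of Schwann cells (at least 24.1-fold lower). The homeodomain gene PKNOX2 (at least 42.2-fold lower), the secreted-kinase family gene GASK1B (at least 44.02-fold lower), the acyl-CoA synthetase ACSS3 (at least 28.3-fold lower) and the non-coding RNA LINC03082 (at least 36.8-fold lower) were also named, with EMILIN1 described among matrix genes below. These 12 have the lowest fitted differences, an order that depends on the prior count, and several genes with a few counts in A375-BIR that are given below have larger ratios than the bounds here.

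By amount of RNA, and among called genes whose libraries did not overlap between the lines, the largest losses in A375-BIR were 10 mitochondrially encoded genes, the nuclear long non-coding RNA NEAT1 and the transcription factor SOX4. NEAT1, the scaffold of nuclear paraspeckles, stood at 7012, 8884 and 10010 CPM in A375-BIR, with 19610, 20640 and 26910 in A375 (log2 difference -1.37 ± 0.23, adjusted p = 7.91e-06). SOX4 (ENSG00000124766; chromosome 6, 21592768 to 21598619), a developmental factor of the same family as SOX9 and SOX10, was read at 92.3, 92.7 and 132 CPM in A375-BIR, with 2935, 2808 and 2798 in A375 (log2 difference -4.79 ± 0.21, adjusted p = 2.8e-20). Both genes separated the lines completely, and SOX4 varied little among the A375 libraries. MALAT1, another nuclear long non-coding RNA, held more counts than any of these but overlapped, at 2.36%, 3.94% and 5.78% of gene counts in A375-BIR and 5.08%, 5.68% and 8.60% in A375 (two-sided exact permutation p = 0.3). By the same rule the largest gains besides IL7R and UGCG were those of PTMA, which encodes prothymosin alpha (1934 ± 372 against 606 ± 103 CPM, mean ± SD, n = 3 each, log2 difference 1.69 ± 0.20), the nuclear phosphoprotein gene NUCKS1 (2205 ± 322 against 853 ± 23.5 CPM), the poly(A)-binding protein gene PABPC1 (3304 ± 422 against 1383 ± 74.3 CPM), the histone chaperone gene NAP1L1 (1970 ± 274 against 1112 ± 233 CPM), the ferritin light chain FTL (3299 ± 536 against 1892 ± 149 CPM) and 5 ribosomal protein genes.

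Genes that report ERK activity differed in both directions between the lines under drug. Of the 9 tested genes of the MAPK pathway activity score, a published list of ERK-output transcripts, 5 were higher and 3 lower. Both shares (55.6% and 33.3%) were above the 22.6% and 20.2% of all tested genes. CCND1 (ENSG00000110092; chromosome 11, 69641087 to 69654474), cyclin D1, which carries growth signals to the cell cycle, stood at 431, 497 and 505 CPM in A375-BIR, with 39.2, 60.3 and 22.6 in A375 (log2 difference 3.42 ± 0.23, adjusted p = 4.39e-15). Every A375-BIR library held several times more than any A375 library. DUSP6, the ERK phosphatase that is induced by ERK itself, stood at 167, 168 and 80.2 CPM in A375-BIR, with 33, 20.1 and 28.2 in A375 (log2 difference 2.40 ± 0.29, adjusted p = 1.56e-08). ETV4, an ETS factor downstream of ERK, stood at 44.7, 27.99 and 43.99 CPM in A375-BIR, with 6.19, 6.695 and 0 in A375 (log2 difference 2.83 ± 0.48, adjusted p = 8.15e-06). EPHA2, an ephrin receptor on the same list, stood at 60.9, 94.5 and 31.1 CPM in A375-BIR, with 12.4, 17.9 and 11.3 in A375 (log2 difference 2.15 ± 0.38, adjusted p = 1.89e-05). The A375-BIR libraries were the higher ones in all 4 genes, without overlap. Against this direction, DUSP4, a nuclear MAPK phosphatase, stood at 103, 108 and 139.7 CPM in A375-BIR, with 219, 234 and 288 in A375 (log2 difference -1.08 ± 0.19, adjusted p = 1.36e-05). SPRY2, a feedback inhibitor of receptor signalling, stood at 53.3, 59.5 and 41.4 CPM in A375-BIR, with 111, 112 and 95.9 in A375 (log2 difference -1.04 ± 0.23, adjusted p = 0.000308). PHLDA1 stood at 143, 203 and 132 CPM in A375-BIR, with 326, 304 and 344 in A375 (log2 difference -1.01 ± 0.18, adjusted p = 2.36e-05). In these 3 genes the A375 libraries were all above those of A375-BIR. SPRY4, the remaining tested gene of the score, stood at 27.6 ± 15.2 against 16.6 ± 4.71 CPM and did not pass the test (adjusted p = 0.329).

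A second list of 18 tested immediate-early and ERK-dependent genes was split in a similar way, with 8 higher, 3 lower and a median of 0.59. EGR1, a zinc-finger factor induced within minutes of ERK activation, stood at 292, 142 and 215 CPM in A375-BIR, with 84.5, 73.7 and 95.9 in A375 (log2 difference 1.41 ± 0.23, adjusted p = 5.02e-06). FOSB, an AP-1 subunit, had 86 counts in A375-BIR and 3 in A375, a ratio of 15.8 (95% counting interval 5.24 to 78.3). HMGA2, an architectural chromatin protein, stood at 203, 166 and 158 CPM in A375-BIR, with 51.6, 53.6 and 84.6 in A375 (log2 difference 1.60 ± 0.22, adjusted p = 3.13e-07). PHLDA2 stood at 54.3, 73.5 and 67.3 CPM in A375-BIR, with 12.4, 17.9 and 28.2 in A375 (log2 difference 1.87 ± 0.35, adjusted p = 3.26e-05). The lines did not overlap in these 4 genes. JUN, the AP-1 subunit that pairs with FOS proteins, went the other way at 184, 289 and 181 CPM in A375-BIR, with 619, 536 and 530.3 in A375 (log2 difference -1.37 ± 0.18, adjusted p = 6.94e-08), as did MAFF, a small MAF protein (33.6 ± 16.7 against 70.5 ± 9.26 CPM, log2 difference -1.10 ± 0.29), and SPRED1, a RAS inhibitor (86.2 ± 16.02 against 162 ± 26.9 CPM, log2 difference -0.86 ± 0.20). FOSL1, the AP-1 subunit FRA1, was higher in A375-BIR, at 59.98, 142 and 95.8 CPM in A375-BIR, with 26.8, 37.9 and 28.2 in A375 (log2 difference 1.59 ± 0.32, adjusted p = 0.00012).

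The components of the pathway itself had few calls in the higher direction. Of 18 tested RAS, RAF, MEK and ERK components, 1 was higher and 4 were lower, and 13 did not pass the test; the count of higher genes was 0 without A375-BIR library 2 or without A375 library 1, and 2 without A375-BIR library 3. MAP2K2, which encodes MEK2, stood at 69.5, 38.5 and 67.3 CPM in A375-BIR, with 146, 118 and 141 in A375 (log2 difference -1.18 ± 0.23, adjusted p = 5.89e-05). The adaptor GRB2, which links receptors to RAS activation, stood at 159.9, 92.7 and 129 CPM in A375-BIR, with 219, 201 and 203 in A375 (log2 difference -0.68 ± 0.19, adjusted p = 0.00424). In both genes the A375-BIR libraries were the lower ones. The scaffold gene KSR1 was read at only 1.904, 5.25 and 0 CPM in A375-BIR, with 12.4, 11.2 and 28.2 in A375 and lost its call without A375-BIR library 1 (adjusted p = 0.0679). MAP2K1, which encodes MEK1, was the higher gene, at 27.6, 55.98 and 38.8 CPM in A375-BIR, with 8.25, 29.01 and 11.3 in A375 (log2 difference 1.18 ± 0.41, adjusted p = 0.0185), and it lost its call without A375-BIR library 2 (adjusted p = 0.0927) or A375 library 1 (0.227), and without the third library of both groups (0.0542). Without A375 library 2 its log2 difference was 2.07. BRAF itself stood at 57.7 ± 5.29 against 45.97 ± 6.08 CPM and did not pass the test (adjusted p = 0.377). The 3′ tags do not read the coding sequence of BRAF, so mutations and spliced forms were not measured.

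Receptor tyrosine kinases were exchanged rather than shifted as a group: of 18 tested, 7 were higher and 6 lower. EGFR, the epidermal growth factor receptor, was read at 188, 250.2 and 209.6 CPM in A375-BIR, with 4.12, 0 and 5.64 in A375, on 421 against 3 counts, and AXL, the receptor of GAS6, at 268, 325 and 300.2 CPM in A375-BIR, with 4.12, 11.2 and 0 in A375. In the family of AXL the exchange was within the receptors themselves, since TYRO3 stood at 11.4, 12.2 and 7.76 CPM in A375-BIR, with 78.4, 87.04 and 102 in A375 (log2 difference -2.96 ± 0.31, adjusted p = 6.81e-10). AXL was high where TYRO3 was low, and neither gene overlapped between the lines. MET, the hepatocyte growth factor receptor, stood at 306, 259 and 243 CPM in A375-BIR, with 72.2, 95.97 and 67.7 in A375 (log2 difference 1.75 ± 0.20, adjusted p = 4.86e-09). EPHB2, an ephrin receptor, had 99 against 3 counts, a ratio of 18.2 (95% counting interval 6.06 to 89.97). ERBB3, the neuregulin receptor without strong kinase activity of its own, stood at 19.04, 19.2 and 18.1 CPM in A375-BIR, with 216, 188 and 158 in A375. FLT1, the VEGF receptor 1, stood at 3.81, 3.499 and 2.59 CPM in A375-BIR, with 61.9, 44.6 and 33.9 in A375 (log2 difference -3.78 ± 0.48, adjusted p = 3.92e-08). DDR1, a collagen receptor, stood at 79.97, 69.98 and 77.6 CPM in A375-BIR, with 212, 212 and 214 in A375 (log2 difference -1.48 ± 0.19, adjusted p = 6.91e-08). ERBB3, FLT1 and DDR1 were all higher in A375 with no overlap.

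Ligands of these receptors were mostly higher in A375-BIR: 10 of 14 tested were higher and 1 lower, a median of 1.38 (1.28 with genes at 0 in a group set to their bound). HBEGF, a membrane-bound EGFR ligand, stood at 246, 276 and 251 CPM in A375-BIR, with 33, 31.2 and 39.5 in A375 (log2 difference 2.94 ± 0.23, adjusted p = 3.27e-13). TGFA, another EGFR ligand, stood at 65.7, 50.7 and 67.3 CPM in A375-BIR, with 14.4, 15.6 and 16.9 in A375 (log2 difference 1.99 ± 0.35, adjusted p = 1.55e-05). Both ligands separated the lines, as did the receptor EGFR above. NRG1, the ligand of ERBB3, had 36 counts in A375-BIR and none in A375 (at least 6.63-fold higher), while its receptor ERBB3 was lower. BDNF, a neurotrophin, had 82 against 1 count, a ratio of 45.3 (95% counting interval 7.91 to 1812). The 1 lower ligand was VEGFA, the angiogenic factor, at 74.3, 38.5 and 49.2 CPM in A375-BIR, with 128, 163 and 214 in A375 (log2 difference -1.49 ± 0.24, adjusted p = 2.75e-06), in the same direction as its receptor FLT1; without A375-BIR library 1, 2 ligands were lower.

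Downstream of the receptors, the PI3K, AKT and mTOR list leaned lower (6 higher and 10 lower of 28, median -0.53), with 6 lower without A375 library 1. IRS2, the adaptor that links insulin and IGF receptors to PI3K, stood at 107, 234 and 124 CPM in A375-BIR, with 1984, 1966 and 1687 in A375 (log2 difference -3.62 ± 0.22, adjusted p = 6.87e-16). The lines were far apart, with A375-BIR library 2 the highest of its group. INPP4B, a phosphatase of PI3K lipids, stood at 28.6, 36.7 and 18.1 CPM in A375-BIR, with 109, 129 and 124 in A375 (log2 difference -2.06 ± 0.26, adjusted p = 2.68e-08). PDPK1, the kinase that activates AKT, stood at 22.9, 17.5 and 31.1 CPM in A375-BIR, with 65.99, 78.1 and 62.05 in A375 (log2 difference -1.60 ± 0.29, adjusted p = 2.47e-05). RPTOR, the raptor subunit of mTORC1, stood at 4.76, 0 and 12.9 CPM in A375-BIR, with 43.3, 20.1 and 62.05 in A375 (log2 difference -2.86 ± 0.53, adjusted p = 4.09e-05). All were lower in A375-BIR without overlap. AKT2 stood at 147 ± 29.7 against 79.1 ± 12.8 CPM (log2 difference 0.91 ± 0.21) and the catalytic subunit PIK3CD at 25.6 ± 0.776 against 6.17 ± 0.527 CPM (log2 difference 1.99 ± 0.49), both higher in A375-BIR. Without A375-BIR library 3 the log2 difference of RPTOR was -3.54.

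Lineage genes showed one of the clearest separations between the lines. None of 19 tested melanocyte and pigment genes was higher in A375-BIR and 14 were lower, with a median of -2.09, and the summed level of the 30 listed genes was 458 to 609 CPM in A375-BIR against 2905 to 3597 CPM in A375. DCT (dopachrome tautomerase), a melanin enzyme, was the largest part of that sum, at 12.4, 26.2 and 10.3 CPM in A375-BIR, with 1984, 1596 and 1658 in A375 (log2 difference -6.75 ± 0.27, adjusted p = 1.63e-20). The lowest A375 library was far above the highest A375-BIR library. CAPN3, a melanoma-expressed calpain, had 2 counts in A375-BIR and 142 in A375, a ratio of A375 to A375-BIR of 128 (95% counting interval 34.9 to 1071). CITED1, a transcriptional co-regulator of pigment cells, had 1 against 81 counts, a ratio of 147 (95% counting interval 25.6 to 5858), and GPM6B, a membrane glycoprotein, 2 against 105 counts, a ratio of 94.97 (95% counting interval 25.6 to 795). TYR, the rate-limiting melanin enzyme, was read at 41.2, 29.01 and 11.3 CPM in A375 and at 0 in A375-BIR. The master regulator MITF stood at 172, 212 and 160.4 CPM in A375-BIR, with 316, 212 and 209 in A375 (log2 difference -0.46 ± 0.19, adjusted p = 0.0421), and the groups overlapped, with A375-BIR library 2 above A375 library 3. MITF lost its call without A375-BIR library 1 (adjusted p = 0.107) or 3 (0.0667) and without A375 library 1 (0.464), and in 11 alternatives in all, other scalings, the replicate block and DESeq2 among them (0.0505 to 0.464).

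The M-box letters CATGTG, on either strand, were in the promoters of 2 of the 12 called melanocyte and pigment genes that have one in the RefSeq table (GRCh38.p14, 250 bases before to 50 after the start), 16.7% against 6.29% of those of tested genes and 11.2% of all promoters.

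Genes of the neural crest and of Schwann cells were lower as well, 16 of 22 with 3 higher and a median of -2.15 (-2.04 with genes at 0 set to their bound). SOX10, needed for the melanocyte and Schwann cell lineages, stood at 46.6, 73.5 and 41.4 CPM in A375-BIR, with 984, 971 and 931 in A375. NGFR, the low-affinity neurotrophin receptor, stood at 4.76, 3.499 and 2.59 CPM in A375-BIR, with 262, 270 and 288 in A375. TFAP2A, an AP-2 factor that acts with MITF in pigment cells, stood at 152, 161 and 173 CPM in A375-BIR, with 1023, 919.5 and 959 in A375 (log2 difference -2.59 ± 0.17, adjusted p = 2.56e-15). All of these were lower in A375-BIR, and no library of a line reached the range of the other line. The 3 genes in the other direction included NCAM1, the neural cell adhesion molecule, at 133, 103 and 132 CPM in A375-BIR, with 35.1, 20.1 and 39.5 in A375 (log2 difference 2.04 ± 0.27, adjusted p = 7.75e-08), and GFRA1, a co-receptor of GDNF, with 28 counts in A375-BIR and none in A375 (at least 5.16-fold higher).

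The transcription factors that mark a mesenchymal switch did not move as one. ZEB2, which is high in differentiated melanocytic cells, stood at 114, 83.97 and 116 CPM in A375-BIR, with 1776, 1582 and 1732 in A375 (log2 difference -4.01 ± 0.20, adjusted p = 2.36e-18). FOXC1 stood at 41.9, 38.5 and 38.8 CPM in A375-BIR, with 330, 306 and 152 in A375 (log2 difference -2.78 ± 0.23, adjusted p = 1.74e-12) and SOX9 at 66.6, 66.5 and 69.9 CPM in A375-BIR, with 138, 152 and 129.7 in A375 (log2 difference -1.07 ± 0.20, adjusted p = 4.88e-05). All 3 factors were lower in A375-BIR. TCF4, a basic helix-loop-helix factor, had 235 counts in A375-BIR and 1 in A375, a ratio of 129.9 (95% counting interval 23.1 to 5153). Opposite to ZEB2, ZEB1 was higher in each A375-BIR library, at 87.6, 110 and 140 CPM, with 45.4, 37.9 and 73.3 in A375. Among intermediate filaments, keratins were found in A375-BIR and neural filaments in A375. KRT18 (ENSG00000111057; chromosome 12, 52948871 to 52952901), a simple-epithelium keratin, was read at 256, 159 and 158 CPM in A375-BIR and at 0 in A375 (at least 77.6-fold higher). KRT80 was read at 94.2, 66.5 and 119 CPM and at 0 (at least 33.7-fold higher), and KRT81, a hair keratin, at 994, 516 and 735 CPM in A375-BIR, with 0, 4.46 and 11.3 in A375 (log2 difference 7.63 ± 0.40, adjusted p = 7.29e-17). KRT81 has a near-identical neighbour, KRT86, and the reads of the pair may be split between them. The epithelial markers EPCAM, KRT5 and KRT6A had no count in the same libraries. NES, the progenitor-cell filament nestin, stood at 3.81, 1.75 and 2.59 CPM in A375-BIR, with 184, 141 and 237 in A375 (log2 difference -5.84 ± 0.36, adjusted p = 3.59e-16). SYNM, synemin, stood at 12.4, 10.5 and 12.9 CPM in A375-BIR, with 214, 192 and 254 in A375 (log2 difference -4.15 ± 0.27, adjusted p = 1.63e-15). Both neural and muscle-type filaments were lower in all A375-BIR libraries. The log2 difference of KRT81 was 6.83 without A375 library 1 and 8.35 without A375 library 3.

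**Figure D2:**
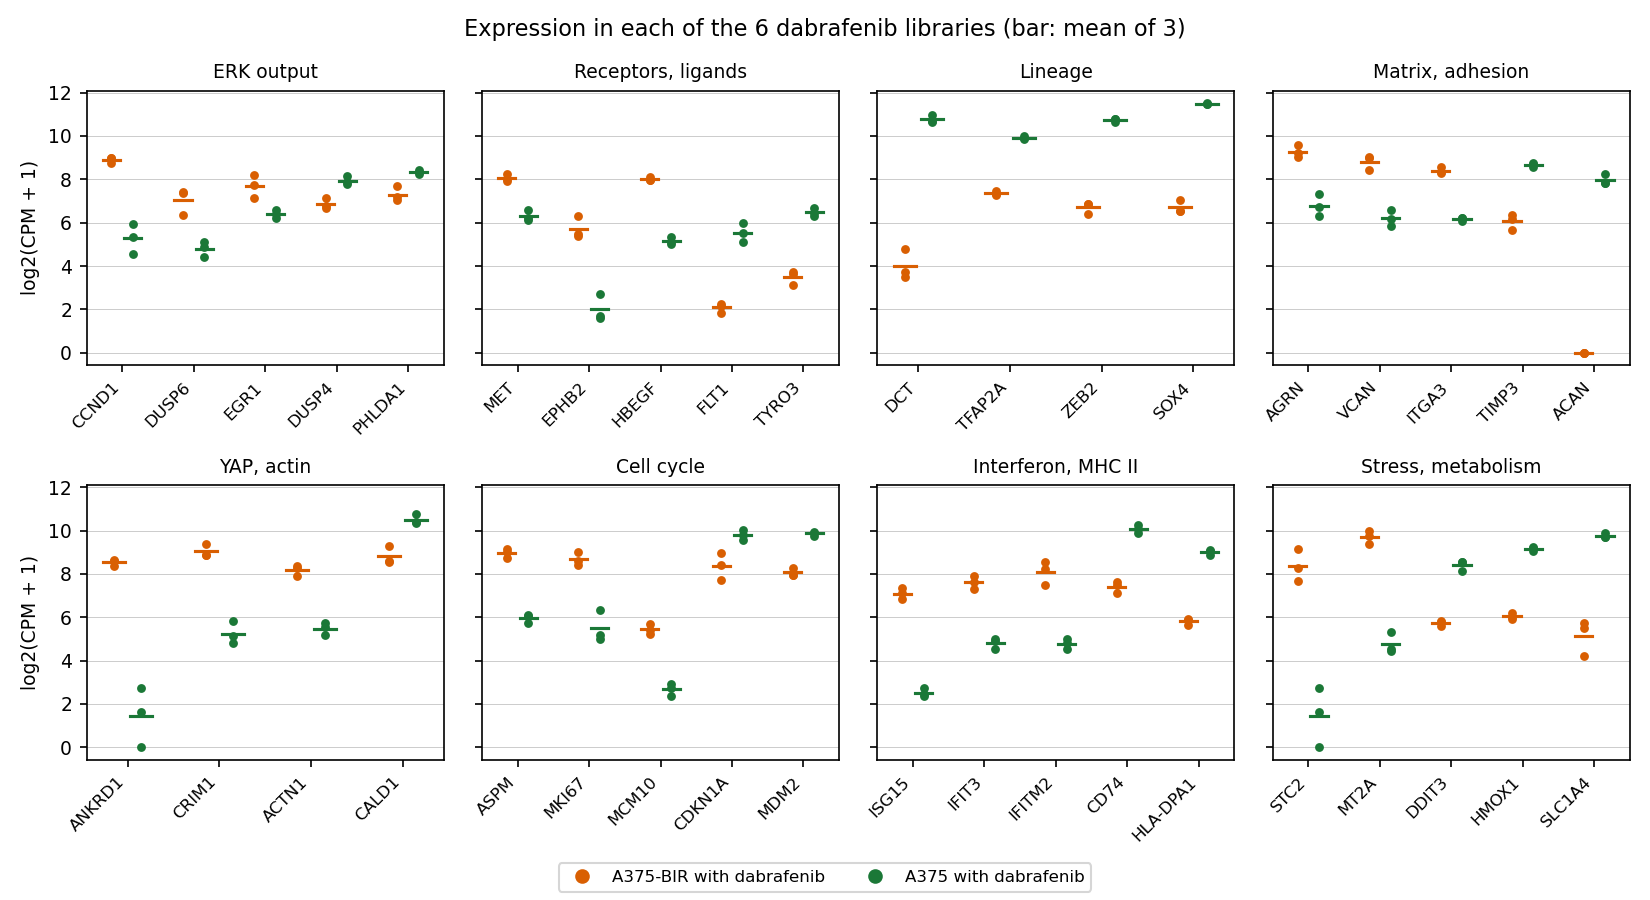
Points are single libraries, 3 of A375-BIR (orange) and 3 of A375 (green) under dabrafenib, on a vertical axis of log2(CPM + 1), with 4 or 5 genes named on the horizontal axis of each panel and a bar at the mean of the 3 values. The colours do not overlap in any gene shown, with A375-BIR above for CCND1, MET, VCAN, ANKRD1, ASPM, ISG15 and MT2A and A375 above for DCT, SOX4, ACAN, CALD1, MDM2, CD74 and HMOX1. Most genes shown were named by a rule that requires this lack of overlap.

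The list of genes of the AXL-high undifferentiated melanoma state had 22 of 33 members higher and 6 lower, with a median of 1.68. Besides AXL and EGFR it holds NT5E, the ectoenzyme CD73 that makes adenosine, at 219.9, 203 and 254 CPM in A375-BIR, with 12.4, 4.46 and 0 in A375. The 6 lower members include ANGPTL4, a secreted lipase inhibitor, which stood at 7.62, 0 and 2.59 CPM in A375-BIR, with 140.2, 158 and 186 in A375 (log2 difference -5.10 ± 0.37, adjusted p = 6.4e-14), and the genes NGFR, JUN and SOX9 given above. Members named from the list by p had to be free of overlap between the lines. They therefore do not show how well lower and higher members separate. The libraries did not overlap for 28 of the 33 tested members, called or not, against 48.2% of all tested genes. The AP-1 letters TGANTCA, on either strand, were in none of the 14 called higher members with a promoter in the RefSeq table, against 4.37% of promoters of tested genes and 7.77% of all promoters. Without A375-BIR library 1, ANGPTL4 had a fitted log2 difference of -7.01.

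Matrix genes were exchanged in kind. Of 42 tested collagens and matrix proteins, A375-BIR had 19 higher and 11 lower, with a median of 0.46. Among proteoglycans, aggrecan had no count in A375-BIR while VCAN, versican, of the same family, stood at 506, 346 and 515 CPM in A375-BIR, with 94.9, 71.4 and 56.4 in A375 (log2 difference 2.54 ± 0.21, adjusted p = 1.66e-12). AGRN, agrin, a basement-membrane proteoglycan, stood at 598, 527 and 761 CPM in A375-BIR, with 78.4, 104.9 and 158 in A375 (log2 difference 2.56 ± 0.21, adjusted p = 1.84e-12). HAPLN1, the link protein that ties such proteoglycans to hyaluronan, was read at 113, 94.5 and 127 CPM and at 0 in A375 (at least 40.9-fold higher). TGFBI, a matrix protein induced by TGF-beta, stood at 522, 632 and 370.1 CPM in A375-BIR, with 74.2, 87.04 and 45.1 in A375 (log2 difference 2.80 ± 0.22, adjusted p = 3.94e-13). These 4 genes were higher in every A375-BIR library. On the other side, COL16A1, a collagen chain, stood at 10.5, 17.5 and 10.3 CPM in A375-BIR, with 111, 112 and 113 in A375 (log2 difference -3.14 ± 0.31, adjusted p = 1.46e-10). SPP1, osteopontin, stood at 8.57, 3.499 and 2.59 CPM in A375-BIR, with 134, 132 and 147 in A375 (log2 difference -4.49 ± 0.33, adjusted p = 6.69e-14). EMILIN1, an elastic-fibre glycoprotein, was read at 94.9, 80.3 and 67.7 CPM in A375 and at 0 in A375-BIR (at least 56.7-fold lower). These were higher in every A375 library. Without A375-BIR library 1 the log2 difference of SPP1 was -5.36.

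Integrins, the receptors for these matrix proteins, had 8 of 16 tested members higher and 4 lower, with 2 lower without A375 library 2. ITGB1, the beta subunit shared by most collagen, laminin and fibronectin receptors, stood at 213, 317 and 168 CPM in A375-BIR, with 59.8, 66.95 and 45.1 in A375 (log2 difference 1.97 ± 0.23, adjusted p = 1.08e-08). ITGA3, which pairs with it to bind laminin, stood at 323, 308 and 383 CPM in A375-BIR, with 65.99, 73.7 and 73.3 in A375 (log2 difference 2.25 ± 0.21, adjusted p = 3.13e-11). Both subunits were higher in all A375-BIR libraries. ITGA11, a collagen-binding subunit, had 51 against 2 counts, a ratio of 14.1 (95% counting interval 3.71 to 119.5), and ITGB4, of the hemidesmosome integrin, 38 counts against none (at least 7.002-fold higher). ITGB8, which activates latent TGF-beta, stood at 29.5, 24.5 and 15.5 CPM in A375-BIR, with 167, 178 and 152 in A375 (log2 difference -2.74 ± 0.25, adjusted p = 3e-11), lower in A375-BIR.

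Other adhesion genes were likewise mixed, with 11 of 28 higher and 7 lower. CDH13, the cadherin without a cytoplasmic tail, stood at 158, 209.9 and 197 CPM in A375-BIR, with 20.6, 44.6 and 16.9 in A375 (log2 difference 2.65 ± 0.26, adjusted p = 1.84e-10). NCAM2 stood at 67.6, 50.7 and 75.05 CPM in A375-BIR, with 6.19, 4.46 and 22.6 in A375 (log2 difference 2.94 ± 0.41, adjusted p = 2.7e-07). PCDH17, a protocadherin, had 115 against 3 counts, a ratio of 21.2 (95% counting interval 7.07 to 104). These were higher in A375-BIR. NRCAM, a neuronal adhesion molecule, stood at 3.81, 8.75 and 10.3 CPM in A375-BIR, with 74.2, 73.7 and 95.9 in A375 (log2 difference -3.54 ± 0.37, adjusted p = 4.06e-10). CDH19, a Schwann cell cadherin, stood at 14.3, 8.75 and 15.5 CPM in A375-BIR, with 43.3, 58.03 and 90.3 in A375 (log2 difference -2.16 ± 0.36, adjusted p = 5.87e-06). CADM1 stood at 289, 224 and 329 CPM in A375-BIR, with 600.1, 574 and 654 in A375 (log2 difference -1.12 ± 0.18, adjusted p = 2.67e-06). All 3 were lower without overlap. The log2 difference of CDH13 was 3.23 without A375 library 2, and that of NCAM2 3.54 without A375 library 3.

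Matrix proteases and their inhibitors split evenly, with 11 higher and 10 lower of 30. ADAMTS12 was read at 145, 89.2 and 150.1 CPM in A375-BIR and at 0 in A375 (at least 48.1-fold higher), and its relative ADAMTS6 had 162 against 2 counts, a ratio of 44.8 (95% counting interval 12.2 to 373). SERPINB2, the plasminogen activator inhibitor PAI-2, had 99 against 3 counts, a ratio of 18.2 (95% counting interval 6.06 to 89.97). The metalloprotease MMP17 had 3 counts in A375-BIR and 68 in A375, a ratio of A375 to A375-BIR of 41 (95% counting interval 13.4 to 204). CTSK, cathepsin K, had 1 against 43, a ratio of 77.8 (95% counting interval 13.2 to 3143). TIMP3, a matrix-bound metalloprotease inhibitor, stood at 71.4, 80.5 and 49.2 CPM in A375-BIR, with 382, 413 and 429 in A375 (log2 difference -2.56 ± 0.19, adjusted p = 8e-14). SERPINE2, protease nexin-1, stood at 444, 596 and 481 CPM in A375-BIR, with 1291, 1281 and 1264 in A375 (log2 difference -1.34 ± 0.17, adjusted p = 7.02e-08). Both inhibitors were lower in all A375-BIR libraries.

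Targets of YAP and TAZ, the co-activators that respond to cell spreading and stiffness, were mostly higher: 18 of 28 tested, with 3 lower and a median of 1.23. ANKRD1, a classical target, was read at 328, 395 and 391 CPM in A375-BIR, with 2.06, 0 and 5.64 in A375, on 721 against 2 counts. CRIM1, a transmembrane BMP antagonist, stood at 466, 668 and 463 CPM in A375-BIR, with 26.8, 55.8 and 33.9 in A375 (log2 difference 3.74 ± 0.24, adjusted p = 2.03e-15). AXL and NT5E, given above, belong to this list too, so its count shares genes with the AXL-high list. The 3 lower members included IGFBP3, at 18.1, 29.7 and 10.3 CPM in A375-BIR, with 59.8, 80.3 and 39.5 in A375 (log2 difference -1.67 ± 0.32, adjusted p = 5.23e-05). WWTR1, which encodes TAZ itself, stood at 155, 173 and 158 CPM in A375-BIR, with 328, 292 and 265 in A375 (log2 difference -0.88 ± 0.18, adjusted p = 0.000102).

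Actin and SRF-dependent genes were mostly higher, 20 of 30 with 1 lower, with a median of 0.86. Left out 1 at a time, A375-BIR libraries 2 and 3 and A375 library 1 each brought the lower count to 2. ACTN1, the actin crosslinker alpha-actinin 1, stood at 305, 327 and 236 CPM in A375-BIR, with 51.6, 35.7 and 45.1 in A375 (log2 difference 2.72 ± 0.22, adjusted p = 1.59e-12). MYH9, non-muscle myosin heavy chain, stood at 273.2, 387 and 331 CPM in A375-BIR, with 111, 109 and 78.98 in A375 (log2 difference 1.66 ± 0.20, adjusted p = 8.65e-09). The A375-BIR libraries were all above those of A375 in both genes, and also in PDLIM5 (158 ± 5.56 against 34.3 ± 15.6 CPM, log2 difference 2.06 ± 0.25). The exception was CALD1, caldesmon, which restrains actomyosin, at 390.3, 373 and 624 CPM in A375-BIR, with 1303, 1348 and 1743 in A375 (log2 difference -1.67 ± 0.19, adjusted p = 4.99e-09).

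Among TGF-beta and BMP genes, 12 of 34 were higher and 7 lower, with a median of 0.42. INHBA, the activin A subunit, stood at 459, 882 and 626 CPM in A375-BIR, with 122, 194 and 186 in A375 (log2 difference 1.99 ± 0.22, adjusted p = 2.83e-09). FST, follistatin, which binds activin, stood at 102, 206 and 166 CPM in A375-BIR, with 47.4, 37.9 and 39.5 in A375 (log2 difference 1.86 ± 0.27, adjusted p = 5.09e-07). BMP4 stood at 115, 50.7 and 56.9 CPM in A375-BIR, with 10.3, 13.4 and 11.3 in A375 (log2 difference 2.76 ± 0.39, adjusted p = 4.87e-07). ID1, a direct BMP target, stood at 143, 96.2 and 49.2 CPM in A375-BIR, with 20.6, 15.6 and 11.3 in A375 (log2 difference 2.59 ± 0.36, adjusted p = 2.71e-07). Ligand, antagonist and target were all higher in A375-BIR without overlap. BAMBI, a decoy receptor of the pathway, stood at 3.81, 3.499 and 5.18 CPM in A375-BIR, with 107, 109 and 45.1 in A375 (log2 difference -4.52 ± 0.40, adjusted p = 9.09e-12). PMEPA1, a feedback inhibitor of SMAD signalling, stood at 57.1, 45.5 and 36.2 CPM in A375-BIR, with 668, 638 and 615 in A375 (log2 difference -3.72 ± 0.20, adjusted p = 9.14e-18). ID4 was read at 26.8, 35.7 and 16.9 CPM in A375 and at 0 in A375-BIR (at least 19.3-fold lower), in the opposite direction to ID1. GDF15, a stress-induced member of the TGF-beta family, stood at 142, 528 and 269 CPM in A375-BIR, with 1145, 1388 and 1461 in A375 (log2 difference -2.10 ± 0.31, adjusted p = 2.21e-05); without the third library of both groups its log2 difference was -1.97 and it did not pass the test (adjusted p = 0.0692). That of BMP4 was 2.17 without A375-BIR library 1, and that of GDF15 -2.77 without A375-BIR library 2.

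IGF-binding proteins, which hold insulin-like growth factors outside the cell, and other genes of that axis had 6 of 14 tested members higher and 3 lower. IGFBP7 was read at 181, 219 and 101 CPM in A375-BIR and at 0 in A375 (at least 65.2-fold higher). IGFBP4 stood at 157, 215 and 145 CPM in A375-BIR, with 6.19, 6.695 and 0 in A375 (log2 difference 4.96 ± 0.37, adjusted p = 9.27e-14). IGFBP6 stood at 316, 212 and 352 CPM in A375-BIR, with 8.25, 13.4 and 11.3 in A375 (log2 difference 4.73 ± 0.31, adjusted p = 2.03e-15). IGFBP2 stood at 150.4, 149 and 119 CPM in A375-BIR, with 24.8, 29.01 and 16.9 in A375 (log2 difference 2.49 ± 0.26, adjusted p = 7.51e-10). These 4 binding proteins were higher in each A375-BIR library, whereas IGFBP3, given above, was lower, as was the receptor IGF1R at 88.5, 59.5 and 72.5 CPM in A375-BIR, with 138, 138 and 180.5 in A375 (log2 difference -0.97 ± 0.21, adjusted p = 0.000362). HTRA1, a secreted protease that cleaves IGF-binding proteins, stood at 12.4, 12.2 and 5.18 CPM in A375-BIR, with 55.7, 51.3 and 39.5 in A375 (log2 difference -2.21 ± 0.36, adjusted p = 4.03e-06).

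Of 19 Wnt genes 5 were higher and 5 lower (26.3% each), near the 22.6% and 20.2% of all tested genes. WNT5A, a ligand of the non-canonical branch, stood at 125, 99.7 and 109 CPM in A375-BIR, with 14.4, 31.2 and 5.64 in A375 (log2 difference 2.51 ± 0.31, adjusted p = 2.63e-08). DKK1, an antagonist of the canonical branch, stood at 39.98, 68.2 and 33.6 CPM in A375-BIR, with 4.12, 2.23 and 5.64 in A375 (log2 difference 3.65 ± 0.53, adjusted p = 5.04e-07). TLE4, a co-repressor, stood at 338, 457 and 287 CPM in A375-BIR, with 90.7, 136 and 45.1 in A375 (log2 difference 1.87 ± 0.23, adjusted p = 2.57e-08). These were higher in A375-BIR in every library. The nuclear effector TCF7L2 stood at 279 ± 75.7 against 493 ± 17.4 CPM (log2 difference -0.81 ± 0.18) and APC, of the beta-catenin destruction complex, at 93.5 ± 6.44 against 177 ± 27.3 CPM (log2 difference -0.97 ± 0.20), both lower. Among Notch targets, HES1 stood at 14.3, 20.99 and 18.1 CPM in A375-BIR, with 88.7, 112 and 67.7 in A375 (log2 difference -2.44 ± 0.29, adjusted p = 1.33e-08) and HEY1 at 0.952, 1.75 and 7.76 CPM in A375-BIR, with 63.9, 49.1 and 39.5 in A375 (log2 difference -4.32 ± 0.50, adjusted p = 4.71e-09), while the list as a whole had 1 higher and 4 lower of 17 (2 higher without A375-BIR library 2). Among 32 tested axon guidance genes 11 were higher and 10 lower, and the neuropilins differed in opposite directions: NRP1 stood at 103, 90.97 and 85.4 CPM in A375-BIR, with 30.9, 33.5 and 16.9 in A375 (log2 difference 1.68 ± 0.27, adjusted p = 3.64e-06) and NRP2 at 85.7, 80.5 and 116 CPM in A375-BIR, with 596, 649 and 513 in A375 (log2 difference -2.68 ± 0.19, adjusted p = 2.28e-14). Their ligands did so too, with SEMA3A at 175, 138 and 137 CPM in A375-BIR, with 63.9, 55.8 and 45.1 in A375 (log2 difference 1.42 ± 0.22, adjusted p = 2.98e-06) and SEMA3C at 126, 108 and 104 CPM in A375-BIR, with 441, 419.6 and 372 in A375 (log2 difference -1.86 ± 0.18, adjusted p = 1.35e-10). The lines did not overlap in any of these 4 genes. The log2 difference of WNT5A was 3.21 without A375 library 2, and that of HEY1 was -3.63 without A375-BIR library 1 and -5.27 without A375-BIR library 3.

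Cell-cycle genes were higher in A375-BIR under drug. Of 41 tested G2 and mitosis genes, 35 were higher and none lower, with a median of 2.15. The libraries of the lines did not overlap for 36 of them, against 48.2% of all tested genes. Many such genes share a promoter element called the CHR, often beside CCAAT boxes bound by NF-Y. The RefSeq promoter of ASPM, a mitotic spindle-pole gene and a member of this list, is printed as the example (GRCh38.p14, chr1:197146620-197146919, minus strand, 5′ to 3′, from 250 bases before to 50 after the transcription start). Its capitals mark TTCAAA, the reverse complement of the CHR letters TTTGAA.
ASPM: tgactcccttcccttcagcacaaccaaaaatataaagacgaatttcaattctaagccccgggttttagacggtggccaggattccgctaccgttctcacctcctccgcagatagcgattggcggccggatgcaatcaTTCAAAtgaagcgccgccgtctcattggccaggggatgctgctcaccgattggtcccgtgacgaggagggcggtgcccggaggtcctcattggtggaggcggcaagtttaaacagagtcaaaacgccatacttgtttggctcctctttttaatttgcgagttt
The letters TTTGAA were found on either strand in 19 of the 28 called members that have a promoter in the table (67.9%), against 15.4% of all 27303 promoters and 9.39% of those of tested genes. CCAAT was found in 23 of the 28 (82.1%), against 35.7% of all promoters and 37.3% of those of tested genes, and ASPM holds 4 matches to it. These are matches of letters in a fixed window, not measured binding.

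ASPM itself stood at 571, 429 and 512 CPM in A375-BIR, with 51.6, 64.7 and 67.7 in A375 (log2 difference 3.07 ± 0.22, adjusted p = 3.53e-14). MKI67, the proliferation marker Ki-67, stood at 390.3, 341 and 520.2 CPM in A375-BIR, with 35.1, 31.2 and 78.98 in A375 (log2 difference 3.30 ± 0.26, adjusted p = 2.74e-13). TOP2A, topoisomerase II alpha, stood at 619, 570.3 and 626 CPM in A375-BIR, with 107, 127 and 141 in A375 (log2 difference 2.30 ± 0.20, adjusted p = 4.36e-12). The lowest A375-BIR library was above the highest A375 library in all 3 genes, and also in CENPF, a kinetochore protein (790.4 ± 174 against 139.8 ± 32.4 CPM, log2 difference 2.55 ± 0.21). DNA replication and S-phase genes followed with 22 of 37 higher, 1 lower and a median of 1.31. MCM10, a replication initiation factor, stood at 36.2, 50.7 and 41.4 CPM in A375-BIR, with 4.12, 6.695 and 5.64 in A375 (log2 difference 2.92 ± 0.46, adjusted p = 2.74e-06). RRM2, the regulated subunit of ribonucleotide reductase, stood at 61.9, 76.97 and 77.6 CPM in A375-BIR, with 14.4, 13.4 and 5.64 in A375 (log2 difference 2.48 ± 0.35, adjusted p = 4.72e-07), its partner RRM1 at 198 ± 39.8 against 65.9 ± 20.5 CPM (log2 difference 1.53 ± 0.22), and DTL at 105.1 ± 36.9 against 24.4 ± 4.08 CPM (log2 difference 2.14 ± 0.31). The lines separated in these 4 as well. The single lower member was CCNE1, cyclin E1, at 13.3, 14 and 7.76 CPM in A375-BIR, with 16.5, 35.7 and 28.2 in A375 (log2 difference -1.07 ± 0.43, adjusted p = 0.0403), and it lost that call without A375-BIR library 1 or 3 and without A375 library 2 or 3 (adjusted p from 0.0667 to 0.34), and in 9 alternatives in all, the replicate block and DESeq2 among them (0.0518 to 0.34).

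Calls were fewer among genes of the G1 step. Of 16 cyclin D, CDK inhibitor and RB family genes 5 were higher and 2 lower (31.25% and 12.5%, against 22.6% and 20.2% of all tested genes). Beside CCND1, CCND2, cyclin D2, stood at 57.1, 76.97 and 87.99 CPM in A375-BIR, with 2.06, 6.695 and 0 in A375 (log2 difference 4.24 ± 0.47, adjusted p = 2.71e-09). CDK6, their kinase partner, stood at 678, 789 and 1209 CPM in A375-BIR, with 392, 377 and 525 in A375 (log2 difference 1.06 ± 0.20, adjusted p = 4.09e-05). CDKN1A, the CDK inhibitor p21, stood at 339.9, 500.3 and 209.6 CPM in A375-BIR, with 1039, 899 and 745 in A375 (log2 difference -1.35 ± 0.21, adjusted p = 5.18e-06). Cyclin and kinase were higher and the inhibitor lower in every A375-BIR library. The count of lower genes fell to 1 without A375-BIR library 1 or 3, or without A375 library 1 or 2. CDKN1A is a p53 target, and of 33 tested p53 targets 5 were higher and 9 lower, with a median of -0.25 and a mean of 0.14; without A375-BIR library 2, 14 were lower. MDM2, the ubiquitin ligase that p53 induces against itself, stood at 248, 248 and 308 CPM in A375-BIR, with 953, 873 and 987 in A375 (log2 difference -1.81 ± 0.17, adjusted p = 5.05e-11). SESN2, sestrin 2, stood at 69.5, 34.99 and 36.2 CPM in A375-BIR, with 142, 163 and 152 in A375 (log2 difference -1.58 ± 0.23, adjusted p = 8.97e-07). Both were lower in A375-BIR. SFN, 14-3-3 sigma, had 34 counts in A375-BIR and none in A375 (at least 6.27-fold higher). Without A375 library 2 the log2 difference of CCND2 was 5.41.

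Cell-death genes were called in both directions. Of 16 BCL2 family genes 4 were higher and 4 lower (25% each), near the 22.6% and 20.2% of all tested genes. The count was 2 higher without A375 library 2 and 2 lower without the third library of both groups. PMAIP1, the BH3-only protein NOXA, stood at 308, 399 and 267 CPM in A375-BIR, with 22.7, 37.9 and 39.5 in A375 (log2 difference 3.35 ± 0.25, adjusted p = 5.97e-14). BNIP3, which targets mitochondria for autophagy, stood at 489, 572 and 310.5 CPM in A375-BIR, with 86.6, 82.6 and 118 in A375 (log2 difference 2.33 ± 0.22, adjusted p = 3.74e-11). Both were higher in all A375-BIR libraries. BMF, a BH3-only protein, stood at 5.71, 8.75 and 2.59 CPM in A375-BIR, with 53.6, 46.9 and 56.4 in A375 (log2 difference -3.08 ± 0.45, adjusted p = 8.14e-07), lower in A375-BIR. BCL2A1, a survival gene of the melanocyte lineage and a known MITF target, had 1 count in A375-BIR and 43 in A375, a ratio of A375 to A375-BIR of 77.8 (95% counting interval 13.2 to 3143). In the death-receptor list 4 of 14 were higher and 2 lower: TNFRSF10A, the TRAIL receptor 1, had 176 against 1 count, a ratio of 97.3 (95% counting interval 17.2 to 3864). CASP8, the caspase that such receptors activate, stood at 148, 140 and 137 CPM in A375-BIR, with 41.2, 53.6 and 62.05 in A375 (log2 difference 1.51 ± 0.23, adjusted p = 1.17e-06). RIPK1, a kinase of the same complexes, stood at 7.62, 5.25 and 7.76 CPM in A375-BIR, with 26.8, 29.01 and 22.6 in A375 (log2 difference -1.93 ± 0.45, adjusted p = 0.000602) and TNFRSF1A at 107 ± 9.11 against 198 ± 5.66 CPM (log2 difference -0.88 ± 0.19), both lower.

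Interferon-stimulated genes were higher in A375-BIR, 25 of 38 tested with 2 lower and a median of 1.55. Their promoters typically carry an interferon-stimulated response element (ISRE), and the promoter of ISG15, a ubiquitin-like protein that interferon induces strongly, is printed to show it (RefSeq, GRCh38.p14, chr1:1013247-1013546, plus strand, 250 bases before to 50 after the start). The capitals mark a pair of overlapping matches to GAAA, any 2 bases and GAAA again, the first of which begins 113 bases before the start.
ISG15: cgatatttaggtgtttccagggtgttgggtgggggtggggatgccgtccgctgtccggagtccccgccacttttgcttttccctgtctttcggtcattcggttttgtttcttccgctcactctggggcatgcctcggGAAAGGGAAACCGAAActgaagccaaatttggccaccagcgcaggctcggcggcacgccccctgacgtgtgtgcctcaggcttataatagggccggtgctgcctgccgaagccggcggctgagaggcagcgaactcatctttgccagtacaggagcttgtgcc
This motif was present on either strand in 14 of the 19 called higher members with a promoter in the table (73.7%), and in 21 of all 31 members with one (67.7%), against 3.65% of all promoters and 2.81% of those of tested genes. The share was therefore similar in members that passed the test and in the list as a whole.

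ISG15 was read at 137, 112 and 160.4 CPM in A375-BIR, with 4.12, 4.46 and 5.64 in A375 (log2 difference 4.86 ± 0.40, adjusted p = 1.55e-12). IFI27 stood at 219, 182 and 145 CPM in A375-BIR, with 2.06, 8.93 and 28.2 in A375 (log2 difference 4.32 ± 0.37, adjusted p = 5.96e-12). IFIT3, an RNA-sensing effector, stood at 241, 194 and 158 CPM in A375-BIR, with 28.9, 31.2 and 22.6 in A375 (log2 difference 2.81 ± 0.25, adjusted p = 1.44e-11). The A375-BIR libraries were all far above those of A375. IFITM2, an antiviral membrane protein, stood at 374, 297 and 176 CPM in A375-BIR, with 26.8, 31.2 and 22.6 in A375 (log2 difference 3.38 ± 0.28, adjusted p = 2.05e-12), and it overlaps IFITM1 on the same strand. The exceptions were the factor STAT2, at 40.9, 19.2 and 15.5 CPM in A375-BIR, with 63.9, 64.7 and 95.9 in A375 (log2 difference -1.29 ± 0.30, adjusted p = 0.000684), and MX2, at 40.9, 36.7 and 25.9 CPM in A375-BIR, with 92.8, 80.3 and 118 in A375 (log2 difference -1.36 ± 0.28, adjusted p = 0.000161), both lower in A375-BIR with no overlap. No interferon treatment is named in the labels. The log2 difference of IFI27 was 3.65 without A375 library 1 and 5.07 without A375 library 3, and that of STAT2 was -1.97 without A375-BIR library 1.

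Inflammatory genes leaned the same way, with 11 of 23 NF-kB and cytokine genes higher, 1 lower and a median of 0.77. PTGS2, the inducible cyclooxygenase COX-2, stood at 179.9, 192 and 122 CPM in A375-BIR, with 2.06, 4.46 and 11.3 in A375 (log2 difference 5.16 ± 0.41, adjusted p = 5.78e-13). CCL5, a T-cell chemokine, stood at 259, 194 and 106 CPM in A375-BIR, with 33, 17.9 and 28.2 in A375 (log2 difference 2.89 ± 0.32, adjusted p = 1.86e-08). IL18 had 54 counts in A375-BIR and none in A375 (at least 9.95-fold higher). TNFAIP2 stood at 184 ± 41.1 against 46.2 ± 18.8 CPM (log2 difference 2.16 ± 0.27). IL24, a cytokine first found in differentiating melanoma cells, was the 1 lower gene, at 191, 381 and 241 CPM in A375-BIR, with 767, 585 and 423 in A375 (log2 difference -1.17 ± 0.24, adjusted p = 0.000236). Complement and coagulation genes had 14 of 19 higher and 1 lower, with a median of 1.94. CFB, complement factor B, was read at 81.9, 62.98 and 122 CPM in A375-BIR and at 0 in A375 (at least 31.1-fold higher). C3, the central complement component, had 99 against 1 count, a ratio of 54.7 (95% counting interval 9.598 to 2183). CLU, clusterin, stood at 95.2, 80.5 and 101 CPM in A375-BIR, with 2.06, 11.2 and 0 in A375 (log2 difference 4.05 ± 0.42, adjusted p = 3.57e-10). CFB overlaps C2 and C3 overlaps GPR108 on the same strand. CD59, which protects cells from complement lysis, was the lower one, at 302, 367 and 277 CPM in A375-BIR, with 716, 709.7 and 688 in A375 (log2 difference -1.16 ± 0.17, adjusted p = 6.47e-07). Without A375 library 2 the log2 difference of CLU was 5.78.

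Antigen presentation divided by class. All 12 tested MHC class II genes were lower in A375-BIR, with a median of -2.76 and a range of -4.42 to -1.91. All 12 separated the lines, against 48.2% of all tested genes. CD74, the invariant chain that escorts class II molecules, is given with its RefSeq promoter because class II promoters share a CCAAT-like Y box (GRCh38.p14, chr5:150412861-150413160, minus strand, 250 bases before to 50 after the start). Its capitals mark CCAAT, 53 bases before the start.
CD74: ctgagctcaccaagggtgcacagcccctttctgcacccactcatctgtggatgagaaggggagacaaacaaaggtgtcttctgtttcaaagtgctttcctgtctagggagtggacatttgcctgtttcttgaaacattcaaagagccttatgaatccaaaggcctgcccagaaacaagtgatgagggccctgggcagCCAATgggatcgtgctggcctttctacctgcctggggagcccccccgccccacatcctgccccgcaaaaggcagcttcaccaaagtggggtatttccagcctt
CCAAT was present in 9 of the 10 class II members with a promoter in the table (90%), against 35.7% of all promoters and 37.3% of those of tested genes. CD74 stood at 176, 138 and 194 CPM in A375-BIR, with 1062, 1216 and 936 in A375 (log2 difference -2.67 ± 0.20, adjusted p = 5.6e-14). HLA-DRB1, a beta chain of HLA-DR, stood at 44.7, 29.7 and 28.5 CPM in A375-BIR, with 551, 493 and 513 in A375 (log2 difference -3.83 ± 0.20, adjusted p = 9.47e-18). HLA-DPA1 stood at 59.98, 57.7 and 49.2 CPM in A375-BIR, with 524, 556 and 468 in A375 (log2 difference -3.19 ± 0.20, adjusted p = 6.88e-16). HLA-DQB1 stood at 3.81, 0 and 5.18 CPM in A375-BIR, with 80.4, 55.8 and 62.05 in A375 (log2 difference -4.42 ± 0.45, adjusted p = 4e-10). The A375 libraries were several times higher throughout. The HLA-DRB genes are near-identical copies of each other, and their reads may be split among them.

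Class I genes changed less and in both directions, 5 of 19 higher and 3 lower. Their shares (26.3% and 15.8%) were near the 22.6% and 20.2% of all tested genes. HLA-B stood at 203, 387 and 243 CPM in A375-BIR, with 448, 451 and 491 in A375 (log2 difference -0.74 ± 0.19, adjusted p = 0.00173), lower in A375-BIR without overlap. PSME1, a subunit of the proteasome activator that shapes class I peptides, stood at 288, 206 and 189 CPM in A375-BIR, with 74.2, 84.8 and 62.05 in A375 (log2 difference 1.61 ± 0.21, adjusted p = 9.57e-08), its partner PSME2 at 167 ± 47.8 against 74.6 ± 7.44 CPM (log2 difference 1.16 ± 0.23), and the chaperone CALR at 469.5 ± 62.5 against 235 ± 35.2 CPM (log2 difference 0.99 ± 0.18), all higher. The count of higher genes was 3 without A375-BIR library 1 or A375 library 1, and the count of lower genes 5 without A375-BIR library 2.

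Amino-acid stress genes were lower. Of 33 tested targets of ATF4, the factor of the integrated stress response, 17 were lower and 6 higher, with a median of -0.67. SLC1A4, a transporter of neutral amino acids, stood at 43.8, 17.5 and 51.8 CPM in A375-BIR, with 829, 939.6 and 840.5 in A375 (log2 difference -4.53 ± 0.23, adjusted p = 9.14e-18). DDIT3, the stress factor CHOP, stood at 47.6, 55.98 and 54.4 CPM in A375-BIR, with 282, 368 and 378 in A375 (log2 difference -2.70 ± 0.20, adjusted p = 6.7e-14). DDIT4 stood at 39.98, 54.2 and 28.5 CPM in A375-BIR, with 116, 152 and 152 in A375 (log2 difference -1.72 ± 0.24, adjusted p = 2.31e-07). SLC7A11, the cystine transporter, stood at 112, 119 and 98.3 CPM in A375-BIR, with 264, 257 and 299 in A375 (log2 difference -1.28 ± 0.18, adjusted p = 3.72e-07). Every A375 library was above every A375-BIR library in these genes. The 6 higher members include STC2, stanniocalcin 2, read at 310.4, 562 and 204 CPM in A375-BIR, with 2.06, 0 and 5.64 in A375, on 726 against 2 counts, ATF5, with 55 against 2 counts and a ratio of 15.2 (95% counting interval 4.01 to 129), and the mitochondrial folate enzymes MTHFD2 (292 ± 54.7 against 138 ± 36.5 CPM, log2 difference 1.02 ± 0.20) and ALDH1L2 (110.4 ± 24.5 against 52.7 ± 2.703 CPM, log2 difference 1.02 ± 0.25). Genes of the endoplasmic reticulum stress response had few calls, 2 higher and 5 lower of 24; the lower count ranged from 2 without A375 library 1 to 10 without A375-BIR library 2.

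Lipid synthesis genes had 13 of 31 higher and 2 lower, with a median of 0.76. SCD, which desaturates fatty acids, stood at 206, 304 and 329 CPM in A375-BIR, with 118, 118 and 73.3 in A375 (log2 difference 1.34 ± 0.21, adjusted p = 3.02e-06). ELOVL6, which lengthens them, stood at 62.8, 50.7 and 43.99 CPM in A375-BIR, with 12.4, 11.2 and 22.6 in A375 (log2 difference 1.99 ± 0.36, adjusted p = 2.39e-05), and with all libraries thinned to the smallest total its log2 difference was 0.89 and did not pass the test (adjusted p = 0.196). ACAT2 stood at 36.2, 38.5 and 20.7 CPM in A375-BIR, with 4.12, 4.46 and 0 in A375 (log2 difference 3.16 ± 0.54, adjusted p = 1.01e-05). The lines did not overlap in these enzymes. LPIN1, lipin 1, went against the list (30.4 ± 2.51 against 91.2 ± 16.8 CPM, log2 difference -1.53 ± 0.26). Without the third library of both groups 8 genes of the list were higher, and without A375-BIR library 2, 4 were lower.

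The mitochondrial genome and the ribosome differed in opposite directions. Of 13 mitochondrially encoded genes 12 were lower in A375-BIR, with a median of -1.20. MT-ATP6, of the ATP synthase, stood at 4908, 3480 and 6682 CPM in A375-BIR, with 11860, 12290 and 18070 in A375 (log2 difference -1.49 ± 0.24, adjusted p = 4.41e-06). MT-CO2, of cytochrome oxidase, stood at 2050, 2811 and 3302 CPM in A375-BIR, with 6651, 6581 and 9426 in A375 (log2 difference -1.47 ± 0.22, adjusted p = 9.91e-07). The third library was the highest of both groups for these genes. Of 70 nuclear genes of oxidative phosphorylation, 52 did not pass the test, with 10 higher and 8 lower; the higher count was 17 without A375-BIR library 3 and 6 without A375 library 3, and the lower count 4 without A375 library 1. Of 79 cytosolic ribosomal protein genes 59 were higher and none lower, with a median of 0.76. RPL12 stood at 1233, 1148 and 978 CPM in A375-BIR, with 334, 328 and 220 in A375 (log2 difference 1.89 ± 0.19, adjusted p = 2.78e-10). RPS24 stood at 2586, 3389 and 2394 CPM in A375-BIR, with 979.6, 1163 and 965 in A375 (log2 difference 1.43 ± 0.19, adjusted p = 1.43e-07). Both were higher in each A375-BIR library, as were RPS27A (2138 ± 704 against 613 ± 43.9 CPM, log2 difference 1.81 ± 0.21) and RPS6 (1939 ± 621 against 559 ± 84.1 CPM, log2 difference 1.78 ± 0.21). Ribosomal protein genes have many processed pseudogenes, and 41.3% to 49.4% of the deposited reads of these 6 libraries were set aside as aligned to several places.

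Glycolysis and hypoxia genes were divided, 13 higher and 8 lower of 34, with 7 higher without A375 library 1. ENO1, a glycolytic enolase, stood at 1193, 1156 and 1201 CPM in A375-BIR, with 584, 578 and 389 in A375 (log2 difference 1.17 ± 0.18, adjusted p = 2.22e-06). PGK1 stood at 639.7, 764 and 652 CPM in A375-BIR, with 357, 366 and 372 in A375 (log2 difference 0.91 ± 0.17, adjusted p = 5.23e-05), both higher in A375-BIR; PGK1 overlaps ATP7A on the same strand. SLC2A3, the glucose transporter GLUT3, stood at 104.7, 203 and 119 CPM in A375-BIR, with 330, 328 and 316 in A375 (log2 difference -1.21 ± 0.20, adjusted p = 4.16e-06), lower in A375-BIR, and the carbonic anhydrase CA12 had 1 count in A375-BIR and 32 in A375, a ratio of A375 to A375-BIR of 57.9 (95% counting interval 9.67 to 2357).

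Redox and metal genes differed member by member. HMOX1, heme oxygenase 1, which breaks down heme, stood at 72.3, 62.98 and 59.5 CPM in A375-BIR, with 592, 598 and 530.3 in A375 (log2 difference -3.12 ± 0.18, adjusted p = 1.62e-16). NQO1, a quinone reductase, stood at 212, 227 and 230.3 CPM in A375-BIR, with 454, 451 and 451 in A375 (log2 difference -1.02 ± 0.17, adjusted p = 5.18e-06). Both targets of NRF2 were lower in every A375-BIR library. MGST1, a membrane glutathione transferase, had 226 counts in A375-BIR and 1 in A375, a ratio of 125 (95% counting interval 22.2 to 4956). GSTP1 stood at 743 ± 98.9 against 366 ± 27.2 CPM (log2 difference 1.03 ± 0.18), TXN, thioredoxin, at 294 ± 33.1 against 153 ± 13.4 CPM (log2 difference 0.97 ± 0.18), and the ferritin heavy chain FTH1 at 951, 1470 and 1007 CPM in A375-BIR, with 579.5, 482 and 384 in A375 (log2 difference 1.22 ± 0.19, adjusted p = 1.88e-06). In all, 7 of 34 NRF2 and glutathione genes were higher and 13 lower, with 7 lower by DESeq2. MT2A, a metallothionein that binds zinc and copper, stood at 853, 1011 and 675 CPM in A375-BIR, with 20.6, 22.3 and 39.5 in A375 (log2 difference 5.10 ± 0.27, adjusted p = 9.79e-18). Every A375-BIR library held far more than any A375 library. Its relative MT1X had 46 against 2 counts, a ratio of 12.7 (95% counting interval 3.33 to 108), while the zinc-responsive factor MTF1 (40.9 ± 12.01 against 55.96 ± 0.393 CPM) and the zinc exporter SLC30A1 (54.8 ± 15.6 against 62.8 ± 12.6 CPM), on the same list, did not pass the test (adjusted p = 0.177 and 0.382).

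Detoxifying enzymes and pumps showed no common direction. Of 19 aldehyde dehydrogenase and retinoid genes 6 were higher and 7 lower (4 lower without A375 library 1). ALDH1A3, which makes retinoic acid, stood at 318, 427 and 331 CPM in A375-BIR, with 150.5, 154 and 175 in A375 (log2 difference 1.19 ± 0.18, adjusted p = 2.26e-06). ALDH2 stood at 104, 80.5 and 38.8 CPM in A375-BIR, with 2.06, 4.46 and 11.3 in A375 (log2 difference 4.10 ± 0.49, adjusted p = 1.3e-08). DHRS3, which reduces retinal, stood at 19.04, 19.2 and 36.2 CPM in A375-BIR, with 116, 136 and 102 in A375 (log2 difference -2.39 ± 0.28, adjusted p = 1.05e-08). The first pair was higher and DHRS3 lower in A375-BIR. Of 18 ABC transporters 3 were higher and 6 lower. ABCC3, a drug and bile-salt exporter, stood at 56.2, 24.5 and 41.4 CPM in A375-BIR, with 2.06, 6.695 and 5.64 in A375 (log2 difference 3.20 ± 0.54, adjusted p = 8.7e-06). ABCA5 stood at 30.5, 36.7 and 67.3 CPM in A375-BIR, with 216, 214 and 248 in A375 (log2 difference -2.44 ± 0.24, adjusted p = 7.48e-11). ABCC3 was higher and ABCA5 lower without overlap.

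Smaller families also divided by member. Of 16 S100 and annexin genes 7 were higher and 5 lower (4 higher without A375 library 1 or 2). S100A16 stood at 532, 495 and 559 CPM in A375-BIR, with 119.6, 127 and 141 in A375 (log2 difference 2.05 ± 0.19, adjusted p = 4.2e-11), while S100A1 stood at 0.952, 3.499 and 2.59 CPM in A375-BIR, with 86.6, 71.4 and 50.8 in A375 (log2 difference -5.09 ± 0.45, adjusted p = 8.64e-12) and S100B, the clinical melanoma marker, at 6.66, 1.75 and 2.59 CPM in A375-BIR, with 41.2, 40.2 and 28.2 in A375 (log2 difference -3.07 ± 0.48, adjusted p = 1.99e-06). ANXA2, annexin A2, stood at 174, 173 and 230.3 CPM in A375-BIR, with 773, 777 and 835 in A375 (log2 difference -2.06 ± 0.17, adjusted p = 1.74e-12). Only S100A16 of these 4 was higher in A375-BIR. Chaperones had 9 higher and 6 lower of 23: CCT5, of the chaperonin that folds actin and tubulin, stood at 671, 710.3 and 489 CPM in A375-BIR, with 188, 192 and 203 in A375 (log2 difference 1.70 ± 0.19, adjusted p = 2.69e-09), and HSPD1, the mitochondrial chaperonin, at 425 ± 16.6 against 205 ± 18.3 CPM (log2 difference 1.07 ± 0.18). CRYAB, the small heat-shock protein alpha-B crystallin, had 2 counts in A375-BIR and 121 in A375, a ratio of A375 to A375-BIR of 109 (95% counting interval 29.7 to 914). DNAJB4 stood at 22.9, 38.5 and 33.6 CPM in A375-BIR, with 128, 161 and 141 in A375 (log2 difference -2.25 ± 0.26, adjusted p = 4.41e-09). Without A375-BIR library 1 the log2 difference of S100A1 was -4.49 and that of S100B -4.10.

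Cancer-testis antigens, normally limited to germ cells, had 6 of 12 tested members higher and 2 lower. MAGEA10 stood at 86.6, 96.2 and 77.6 CPM in A375-BIR, with 4.12, 15.6 and 5.64 in A375 (log2 difference 3.26 ± 0.37, adjusted p = 4.58e-09) and MAGEC2 at 87.6, 116 and 82.8 CPM in A375-BIR, with 10.3, 24.6 and 11.3 in A375 (log2 difference 2.55 ± 0.32, adjusted p = 3.95e-08). PRAME, the antigen preferentially expressed in melanoma, stood at 141, 140 and 135 CPM in A375-BIR, with 497, 475 and 496 in A375 (log2 difference -1.81 ± 0.17, adjusted p = 3.18e-11). CTAG2 was read at 30.9, 40.2 and 33.9 CPM in A375 and at 0 in A375-BIR (at least 23.5-fold lower). The MAGE genes were higher and the other pair lower in A375-BIR. The MAGEA genes are close copies of each other. In the lysosome list 5 were higher and 13 lower of 37 (7 lower by DESeq2 or with scaling by library totals, and 8 lower without the third library of both groups; 2 higher without A375-BIR library 2 and 3 without A375 library 1). PSAP, the precursor of the saposins, stood at 370.3, 462 and 282 CPM in A375-BIR, with 742, 841 and 857 in A375 (log2 difference -1.12 ± 0.18, adjusted p = 3.67e-06), lower in A375-BIR, and the protease CTSB at 305 ± 47.3 against 142 ± 13.9 CPM (log2 difference 1.12 ± 0.19), higher. Without A375 library 2 the log2 difference of MAGEA10 was 4.21 and that of MAGEC2 3.14.

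Of 42 chromatin modifiers 12 were lower and 7 higher (28.6% and 16.7%, against 20.2% and 22.6% of all tested genes), with a median of -0.15. HDAC9 stood at 36.2, 87.5 and 62.1 CPM in A375-BIR, with 223, 199 and 237 in A375 (log2 difference -1.89 ± 0.23, adjusted p = 2.21e-08). EP300, the acetyltransferase p300, stood at 113, 122 and 129 CPM in A375-BIR, with 268, 257 and 299 in A375 (log2 difference -1.17 ± 0.18, adjusted p = 1.29e-06). Both were lower in all A375-BIR libraries. HDAC7 went the other way, at 305, 231 and 122 CPM in A375-BIR, with 68.05, 75.9 and 84.6 in A375 (log2 difference 1.61 ± 0.25, adjusted p = 4.29e-06). Of 35 genes of cyclic AMP and G-protein signalling, 9 were higher and 9 lower (5 higher by DESeq2). The shares, 25.7% each, were near those of all tested genes. ADCY1, an adenylyl cyclase, had 1 count in A375-BIR and 64 in A375, a ratio of A375 to A375-BIR of 116 (95% counting interval 20.05 to 4643). EDNRB, the endothelin receptor of melanoblasts, stood at 3.81, 5.25 and 10.3 CPM in A375-BIR, with 74.2, 37.9 and 67.7 in A375 (log2 difference -3.37 ± 0.44, adjusted p = 9.05e-08). Both were lower in A375-BIR without overlap.

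**Figure D3:**
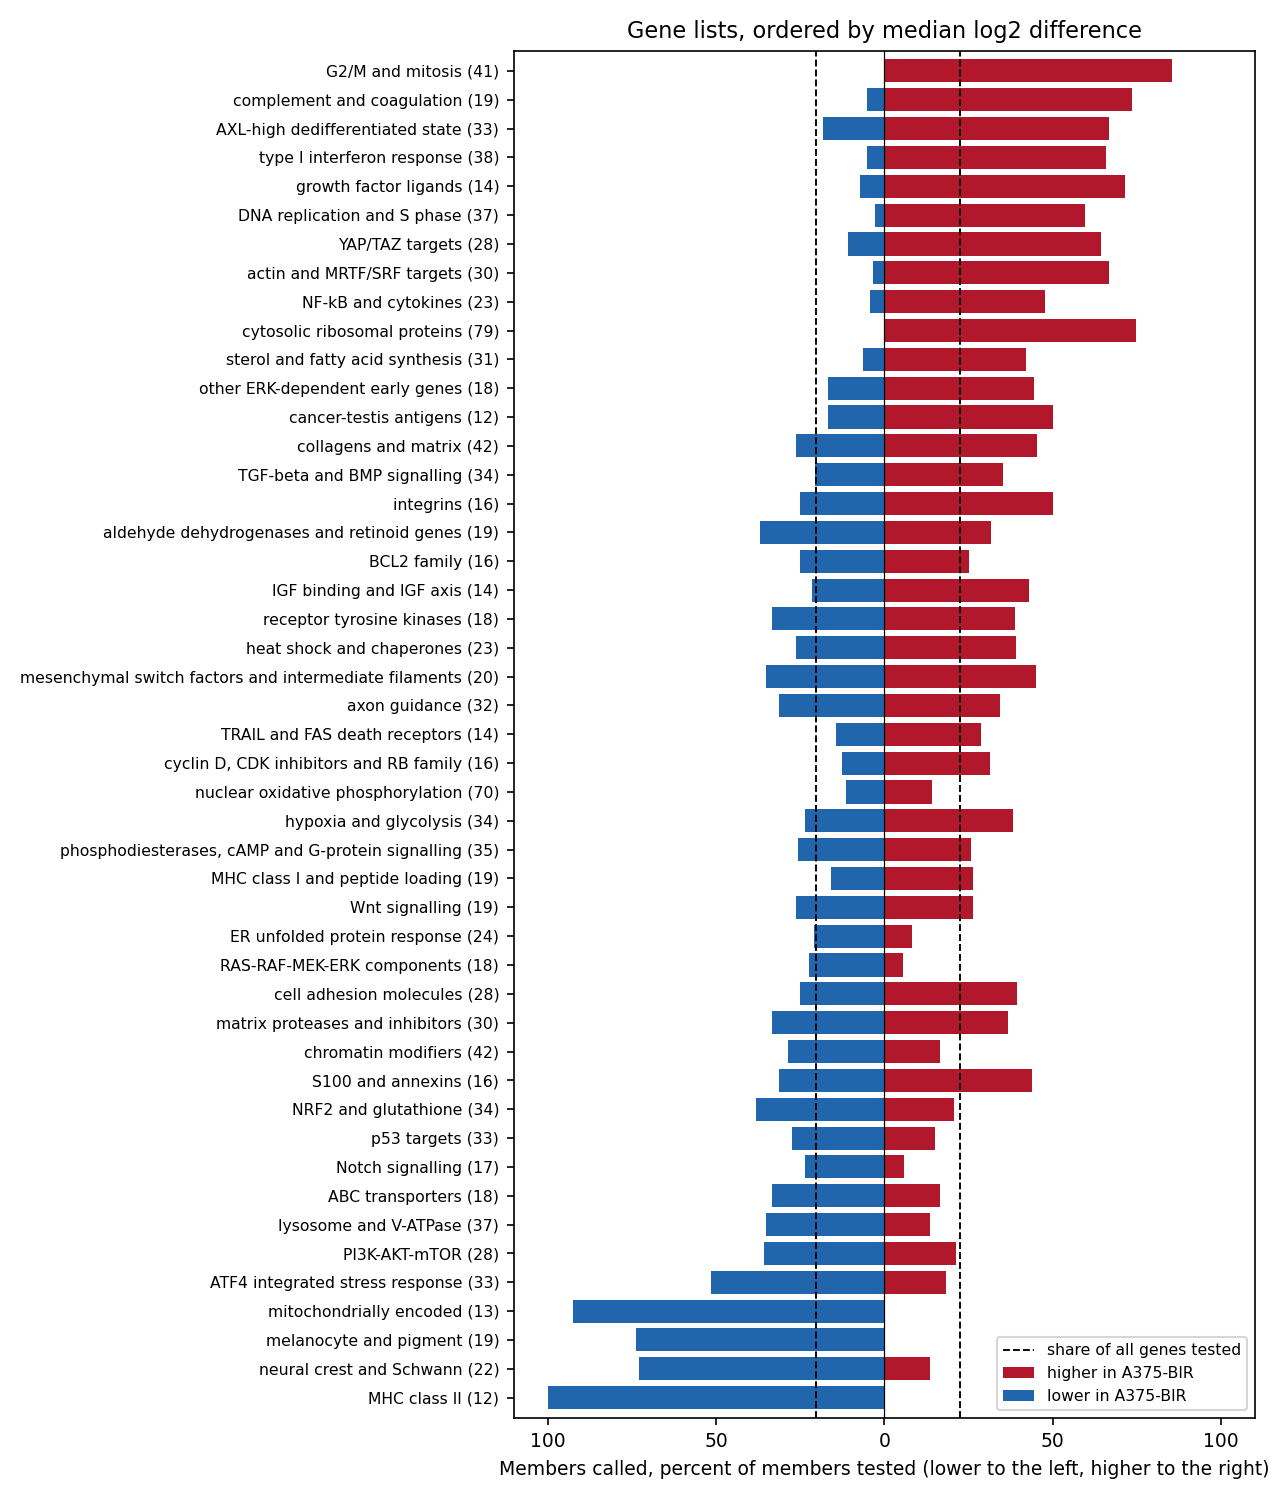
Bars give, for the gene lists described here with at least 10 tested members, the percentage of members higher (right) and lower (left) in A375-BIR at an adjusted p under 0.05, and the vertical lines mark the 22.6% and 20.2% of all tested genes. G2 and mitosis genes (85.4% higher, none lower) and MHC class II genes (100% lower) lie at the ends, and nuclear oxidative phosphorylation genes (14.3% and 11.4%) lie below both marks.

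Differences were not spread evenly over the genome. On chromosome 18, 42.7% of 164 tested genes were higher in A375-BIR and 7.32% lower, and the median was 0.61. Chromosomes 10 (41.1% higher and 8.53% lower, median 0.58) and 9 (37.9% and 4.12%, median 0.57) leaned the same way. Chromosome 15 leaned the other way, with 9.64% higher and 40.1% lower (median -0.54), followed by 17 (12.4% and 31.9%) and 7 (11.6% and 30.1%). In DMSO the medians were 0.75 for chromosome 18, 0.73 for 10, 0.59 for 9 and -0.40 for 15, near those under drug. Other chromosomes differed more between the conditions. The median was -0.66 in DMSO and -0.18 under drug for chromosome 22, -0.51 and -0.12 for 16, and -0.24 and 0.13 for 19. The DMSO medians rest on 1 A375 library, which carries another run mark. In windows of 10 Mb with at least 20 tested genes, 164 of 213 had medians within 0.5 of 0. The highest were on chromosome 18 from 50 to 60 Mb (14 of 24 genes higher, median 1.42), chromosome 5 from 30 to 40 Mb (23 of 29 higher, median 1.27), which holds IL7R, and chromosome 4 from 70 to 80 Mb (18 of 31 higher, median 1.20). The lowest were on chromosome 6 from 10 to 20 Mb (18 of 31 lower, median -1.17) and from 20 to 30 Mb (20 of 37 lower, median -0.99). DNA copy number was not measured in these files.

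**Figure D4:**
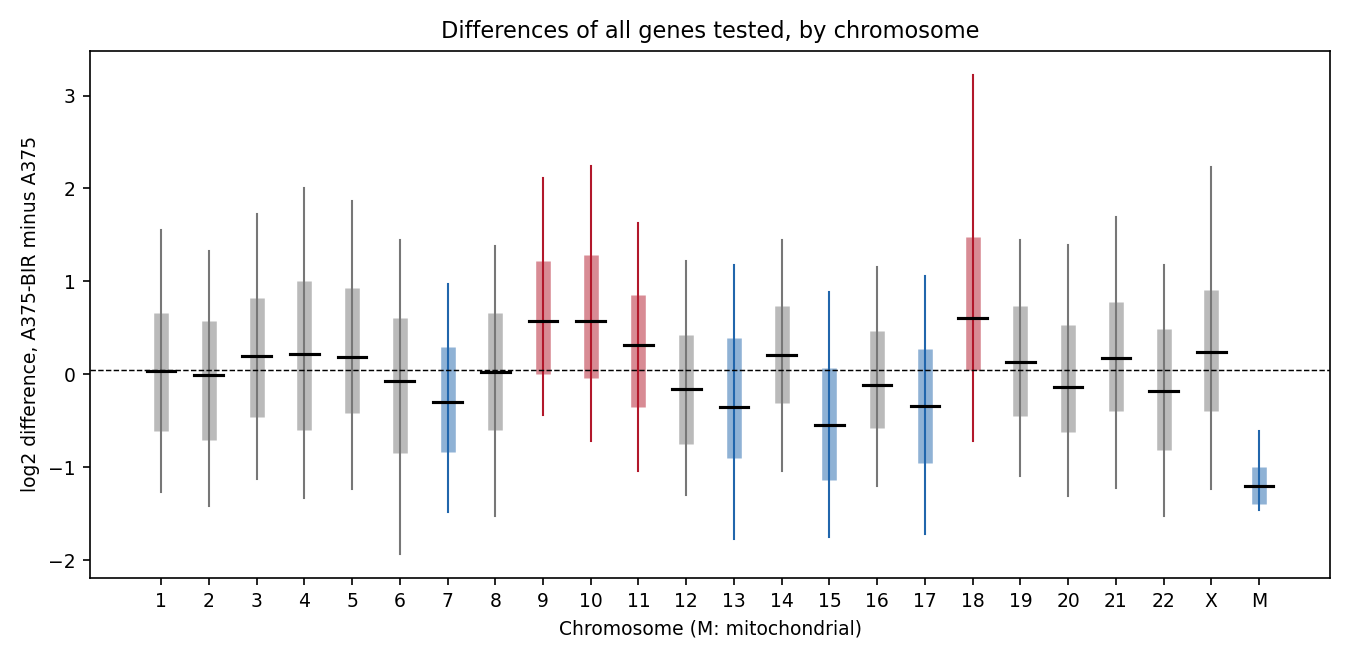
For each chromosome the bar spans the middle 50% of the log2 differences A375-BIR minus A375 under dabrafenib, the line spans the middle 80%, and the black mark is the median; chromosomes whose median lies beyond 0.25 in either direction are coloured. Chromosomes 9, 10 and 18 sit above 0 and chromosome 15 furthest below it among the nuclear chromosomes, with the mitochondrial genome (M) lower still at a median of -1.20.

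The line difference under drug was set beside that in DMSO. Of the 4374 called genes, 3499 (80.0%) had a difference of the same sign in DMSO, against 67.5% of all tested genes and 58.2% of those not called. A direct test of the change in the line difference, dabrafenib against DMSO, called 2313 of 10236 genes (22.6%), 1303 with a higher value under drug (12.7%) and 1010 with a lower one (9.87%), and 1166 of the 4374 (26.7%) were among them. The test rests on a single A375 DMSO library that carries another run mark than the rest, so for it the run and the group cannot be told apart. Scaling by library totals left 2359 calls but turned their split to 810 higher and 1549 lower, with a shift of -0.28 in the median of all genes. A change of this value cannot by itself be assigned to one line.

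SOX10, AXL and CD74 differed in the same direction in both conditions. In DMSO, SOX10 averaged 41.1 ± 8.48 CPM in A375-BIR (mean ± SD, n = 3, as below) and stood at 471 CPM in the 1 A375 library, and the change of the difference did not pass the test (adjusted p = 0.147). AXL was at 373 ± 36.4 and 10.7 CPM (adjusted p = 0.67) and CD74 at 124 ± 32.1 and 1336 CPM (adjusted p = 0.0829). The MHC class II list had a median of -3.71 in DMSO, against -2.76 under drug, and the YAP list 1.71 against 1.23. A p that misses the threshold does not show that these differences were equal. Other lineage genes changed with the condition by the same test: the difference moved by -3.05 ± 0.62 for NGFR, by 0.90 ± 0.29 for MITF and by 1.48 ± 0.29 for SOX9, each lower in A375-BIR in both conditions.

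The line difference of several ERK-output and cell-cycle genes changed with the condition. In DMSO, CCND1 averaged 474 ± 10.6 CPM in A375-BIR against 278 CPM in A375, and its line difference was larger under drug by 2.65 ± 0.32 (adjusted p = 2.12e-07). ETV4 stood at 71.9 ± 8.18 and 136 CPM in DMSO, higher in A375, the reverse of its order under drug (3.76 ± 0.53, adjusted p = 3.61e-06). For EGR1 the DMSO values were 318 ± 12.1 and 649.9 CPM (2.45 ± 0.32, adjusted p = 1.13e-06). CCND1 in A375-BIR was close to its DMSO level under drug, while A375 was lower under drug. TOP2A stood at 1250 ± 40.03 and 1535 CPM in DMSO (2.60 ± 0.29, adjusted p = 3.52e-08). The G2 and mitosis list had a median of 0.89 in DMSO against 2.15 under drug, the S-phase list 0.04 against 1.31, the ERK-output list -0.92 against 1.91, and the ribosomal protein list -0.40 against 0.76.

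Several other genes depended on the condition. In DMSO, MT2A averaged 1357 ± 172 CPM in A375-BIR against 1641 CPM in A375, close to each other, with a wide gap under drug (5.37 ± 0.36, adjusted p = 2.74e-13). HMOX1 was likewise close in DMSO, at 87.01 ± 11.98 and 72.2 CPM, and lower in A375-BIR under drug (-3.40 ± 0.32, adjusted p = 1.6e-09). ZEB2 stood at 73.5 ± 20.2 and 154 CPM in DMSO, with A375 already higher, and the gap was wider under drug (-2.95 ± 0.35, adjusted p = 1.2e-07). IRS2 (147 ± 18.2 and 398 CPM in DMSO) widened in the same way (-2.18 ± 0.36, adjusted p = 5.18e-05). KRT18 was read at 54 CPM in A375 in DMSO and at 0 in its 3 libraries under drug, against 209 ± 9.74 CPM in A375-BIR in DMSO.

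**Figure D5:**
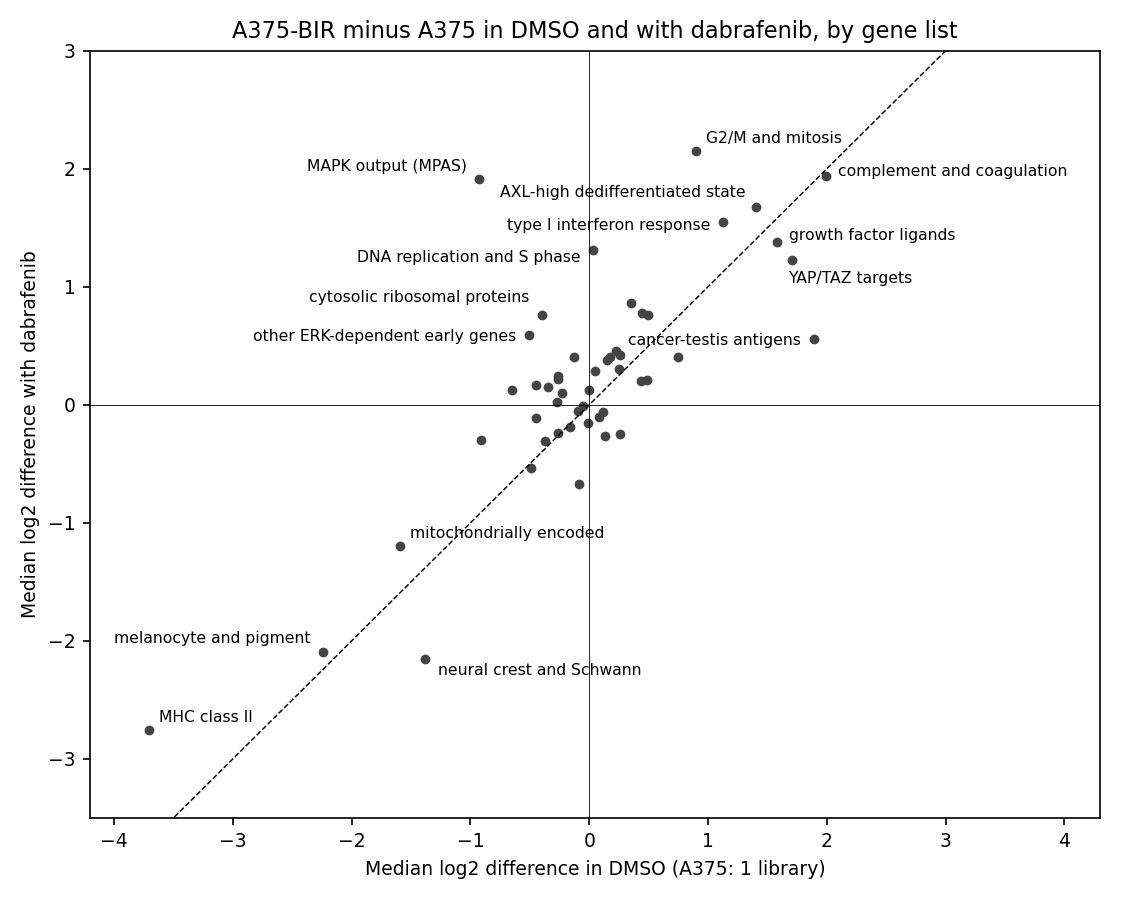
Each point is a gene list with at least 5 tested members, with the median log2 difference A375-BIR minus A375 in DMSO on the horizontal axis and under dabrafenib on the vertical axis, and the diagonal marks equal values. The MHC class II, melanocyte and YAP lists lie near the diagonal or on the same side of 0 in both conditions, whereas the ERK-output list lies at -0.92 in DMSO and 1.91 under drug.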

How the data were processed

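RNA was measured by 3′ tag sequencing (QuantSeq 3′ mRNA-Seq FWD, Lexogen) in 12 samples. The authors deposited 1 table of whole-number read counts per gene and sample, and per the submitters' processing notes the build was hg38. Aligner, counter, annotation release and strand setting: not given in the sources used here. Rows for reads without a gene, aligned to several places or ambiguous were left out of totals, and gene rows held 20.4% to 28.6% of the rows' sum in the 6 libraries compared. Of 33694 identifiers, 32807 had a symbol. Positions come from GENCODE 29 on GRCh38, and promoters from RefSeq on GRCh38.p14. Files labelled A375 DMSO 2 and 3 carry mouse gene identifiers and were not used here.

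Groups were taken from the sample titles. edgeR 4.0.16 (R 4.3.3; filterByExpr with a minimum count of 10, TMM scaling, quasi-likelihood fit) was run on the counts of the 10 human libraries and 10236 genes, and the line contrast under dabrafenib and its change against DMSO were tested with Benjamini-Hochberg adjustment at 0.05. The fit left 6 residual degrees of freedom, and the biological coefficient of variation was 0.136. CPM are counts per 1000000 of the scaled library size, which is the gene counts times the TMM factor (0.808 to 1.103), and the A375 DMSO library had the lowest factor. Counting intervals (95%) and floors (3 counts over a group) cover counting error only, since the tags carry no stated molecular identifiers. The p-values measure the spread among these samples. The fit was tested on simulated data. Exact permutation tests were two-sided.

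Members and gene lists were chosen with earlier results of these data known. Genes were named by rule: called genes that have a symbol, reach 10 CPM in 1 group or more and do not overlap between groups; then the 12 highest and 12 lowest differences, the 12 largest CPM differences each way, up to 4 genes per direction and list by p, key genes of the pathway and lineage, and the 8 highest and 8 lowest changes against DMSO. Of 363 named genes, 168 overlap another gene by annotated span, 26 on the same strand. Reads counted as ambiguous were left out. Without the counting rule and strand setting, some reads of such genes may belong to the other gene, which was not tested. Alternatives were other scalings, DESeq2 1.42.0, filters, a replicate block, thinning to 198690 counts, single libraries left out and a test against a 2-fold change. Summing A375 libraries 1 and 2 and leaving out the third library of both groups were added after the data were seen. Results for a few items of the lists are not reported here.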

Additional observations from a re-analysis of the deposited data

Results flagged for a closer look

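The difference between A375-BIR and A375 under dabrafenib was not the same as in DMSO for 2313 genes, by edgeR's test of the change itself (adjusted p under 0.05). The test uses 1 A375 DMSO library of another run, so the run and the group cannot be told apart. Values below are the change of the log2 difference, dabrafenib against DMSO.

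Among genes of the ERK pathway and its output, the change was positive for CCND1 (2.65), ETV4 (3.76), SPRY4 (3.19), DUSP6 (1.99) and FOSL1 (1.18), and negative for MAP2K1 (-3.68) and BRAF (-1.20). DUSP7, another ERK phosphatase, had -6.15, with no count in the A375 DMSO library. Among lineage genes NGFR had -3.05, MITF 0.90 and SOX9 1.48, and FOXD3, a neural crest factor, had -7.50. TOP2A, of the cell cycle, had 2.60.

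The 8 highest changes were those of BCAT2 (8.25), a branched-chain amino-acid enzyme, KRT18 (8.25), HROB (8.10), a gene of DNA repair, SPRR2D (7.94), BST2 (6.79) and OASL (6.29), both induced by interferon, UCP2 (6.78), a mitochondrial carrier, and CENPM (6.23), of the centromere. The A375 libraries under dabrafenib held no count of these genes except SPRR2D, for which A375-BIR in DMSO held none. The 8 lowest included FOXD3 and DUSP7 and also MAGEA3 (-7.09), CLP1 (-6.57), SGCE (-6.51), SLC16A4-AS1 (-6.03), DAGLA (-5.97) and ARHGEF10L (-5.80). The A375 DMSO library held no count of these except ARHGEF10L (2.51 CPM) and SLC16A4-AS1 (0.628 CPM). A fitted value with a group at 0 is no bound and depends on the prior count.

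Outside the comparison, the files labelled A375 DMSO 2 and 3 hold 224221 and 652439 counts on mouse gene identifiers, in a study whose labels name human lines. These files were not used here.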

How the results depend on the processing

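No call under dabrafenib turned its direction in any alternative among the 350 named called genes, of which 22 lost the call with some single library left out and 120 in any alternative. The count of 4374 genes differing between the lines under dabrafenib became 1764 with only genes of a mean count of at least 50 tested (900 higher and 864 lower), 2551 with every library thinned to the smallest total (1343 and 1208) and 1402 in a test against a 2-fold change (795 and 607). It was 3445 by DESeq2, 4387 with scaling by library totals (2655 and 1732) and 3423 to 4417 with 1 library left out (1818 to 2326 higher and 1605 to 2102 lower). The 2313 genes whose line difference changed against DMSO became 1133 (619 and 514), 624 (399 and 225) and 379 (233 and 146) in the first 3 of these settings, 1153 by DESeq2 (689 and 464), 2359 with library totals (810 and 1549), and 1644 to 3030 with 1 library left out (952 to 1650 and 692 to 1380). Fewer genes enter under the count minimum and fewer counts after thinning; for the other settings the cause was not tested.

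The correlations of same-numbered libraries' deviations were 0.105, 0.067 and 0.272. A375-BIR libraries 1 and 3 correlated best with the A375 library of the same number, and A375-BIR library 2 with A375 library 1 (0.165). These values do not settle whether the replicate numbers pair the samples. With the replicate number as a block, 4292 genes were called (2263 higher and 2029 lower), and 1750 for the change against DMSO (1007 and 743).

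Depth limits the low genes. In the shallowest library 3 counts correspond to 16.9 CPM, so a gene near that level and at 0 there was not detectable at this depth. Of 276 named called genes with more than 3 counts in both groups, thinning moved the fold by over 1.5 times for 21 and leaving out a single library for 29, none with a change of sign.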
